A study of Mus musculus with 15 samples.

Results

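Gene expression in liver tumours of mice that lack Hmgb1 in liver epithelium was set against that of normal mouse liver, across all genes. The comparison takes 9 of the 15 libraries of the study, 6 Hmgb1-deleted tumours and 3 normal livers, chosen by their labels alone. The tumours were hepatocellular carcinomas of HMGB1fl/fl mice expressing Albumin-Cre (Hgmb1Dhep in the labels). These mice had received the mutagen DEN (diethylnitrosamine) intraperitoneally at 25 mg/kg on day 15 of life. From week 8 on, CCl4 (carbon tetrachloride, a liver toxin) was added each week at 0.5 µl/g in corn oil, over 15 weeks. The normal livers came from C57Bl/6 control mice, for which no floxed allele, Cre transgene or treatment is named. The other 6 libraries are tumours of floxed mice without Cre after the same treatment, and they serve here only where a difference between the tumour groups was tested.

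Tumour state, DEN and CCl4 treatment, Hmgb1 deletion and possibly strain all separate the tumours from the normal livers, so their parts in any difference cannot be told apart. The strain of the tumour mice, the sex, the litter and the age at collection are not given in the labels, nor is it said whether any tumours shared a mouse. P-values therefore measure the spread between these samples, which may be partly technical. In whole tissue, fewer cells of a type and less RNA per cell cannot be told apart either. Albumin-Cre deletes floxed genes in hepatocytes and, because both arise from albumin-expressing precursors, in bile duct cells. Macrophages, stellate cells, endothelium and lymphocytes of the tumour keep the gene.

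HMGB1 is an abundant DNA-bending protein of chromatin. Released by dying cells, it acts as an alarm signal through receptors such as TLR4 and AGER (the receptor for advanced glycation end products). Liver carcinogenesis after DEN and CCl4 runs through repeated hepatocyte death, regeneration, inflammation and scarring. Hepatocellular carcinomas are known for renewed cell division, return of fetal genes and loss of the specialised metabolism of the hepatocyte.

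Total counts were 18973246 to 26293378 in the tumours and 23193714 to 26997782 in the normal livers. A gene with 0 counts in a library could still be present at up to 0.11 to 0.161 CPM in the tumours and 0.122 to 0.148 CPM in the normal livers, depending on the library. This limit covers counting error only, and CPM are counts relative to library size after scaling with TMM factors, which correct for composition. Of 13784 tested genes, 4787 (34.7%) passed an adjusted p of 0.05 in edgeR's quasi-likelihood test. They were 2492 genes higher (18.1%) and 2295 genes lower (16.6%) in the tumours, and these shares are the background for every list below. At least 2-fold changes made up 1652 of the higher and 824 of the lower genes, and at least 4-fold changes 765 and 171. The median log2 fold change was 1.39 among higher genes, -0.80 among lower genes and 0.05 over all tested genes. Falls were thus about as frequent as rises but smaller. All 6 tumours lay above all 3 normal livers for 2542 genes (18.4% of those tested) and below them for 2636 genes (19.1%), and among the called genes this held for 2203 of the higher and 2107 of the lower.

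The scaling and the choice of normal livers bear on all counts. The balance of rises and falls follows the scaling: upper-quartile factors moved the median of all genes by 0.15 on the log2 scale and gave 3390 higher and 1578 lower genes (68.2% higher, against 52.1%), and library totals without a factor moved it by 0.28 and gave 2969 and 1062 (73.7% higher). The number of calls rests on the normal livers. Without normal liver 1, 2 or 3 it was 2113, 2227 or 3109, whereas leaving out 1 tumour gave 4081 to 4912. For this comparison, calls and counts that end or move by over 1.5 times when 1 library is left out are therefore given with their values. In what follows, ± after a log2 fold change is the SE, adjusted p is edgeR's over all tested genes, and the 3 values for normal liver are in the order of their labels.

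**Figure D1:**
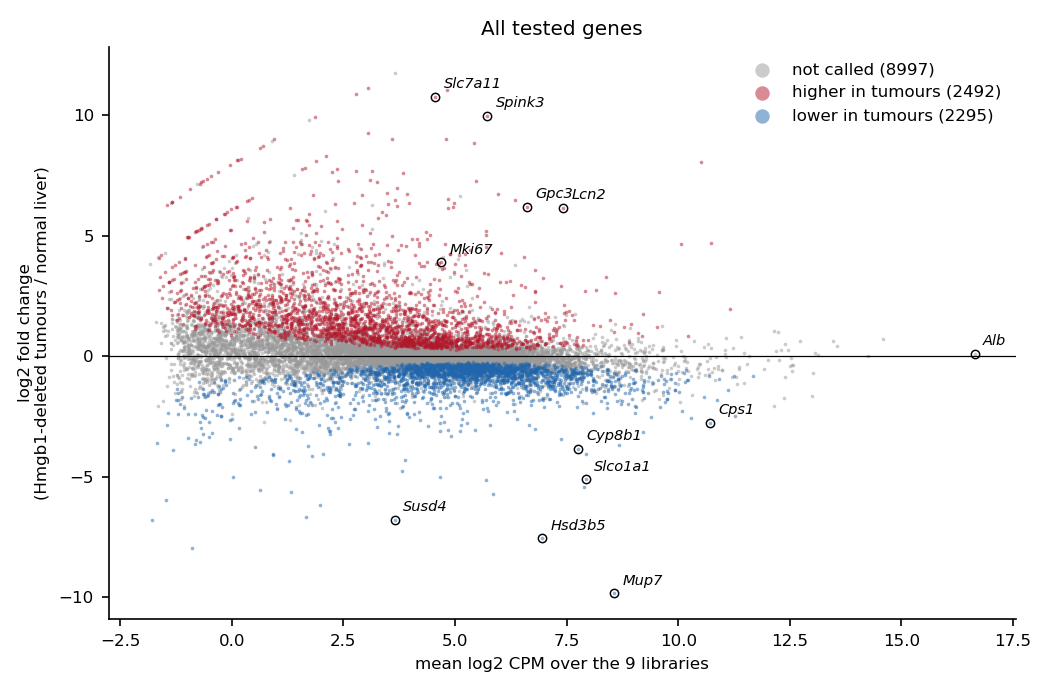
Mean log2 CPM over the 9 libraries (x) and log2 fold change of Hmgb1-deleted tumours over normal liver (y) for the 13784 tested genes, with 2492 called higher in red, 2295 called lower in blue and the rest in grey. Slc7a11 and Spink3 stand at the top and Mup7 and Hsd3b5 at the bottom, Alb near 0 at the far right, and the diagonal lines of points at the upper left are genes with no or hardly any counts in normal liver, whose fold changes depend on the prior count.

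Hmgb1 itself was measured first, as a check of the labels. Its level in tumours 1 to 6 was 9.59, 15.0, 14.8, 17.8, 16.2 and 15.2 CPM and in the normal livers 19.1, 21.8 and 30.7 CPM. Each tumour lay below each normal liver, with a mean of 14.8 CPM ± 2.76 (SD, n = 6) against 23.9 CPM ± 6.07 (SD, n = 3). The difference in mean log2(CPM + 1) was -0.65 (p = 0.0238 in a two-sided exact permutation test, which 6 against 3 libraries cannot bring lower). It was -0.38 with p = 0.19 (exact permutation test) on library totals without a factor. The cell of origin of the remaining transcript was not tested, and which exons Cre removes is not stated in the labels. The mouse genome holds many processed pseudogenes of Hmgb1, which makes its counts uncertain. In edgeR Hmgb1 passed at -0.68 ± 0.20 (adjusted p = 0.0272) and missed the threshold without normal liver 2 or 3, under upper-quartile factors or without a factor (adjusted p from 0.0636 to 0.227). Its relative Hmgb2 was at 0.512 to 4.05 CPM with a median of 2.23 in the tumours and at 1.22, 1.43 and 1.48 CPM in normal liver (0.72 ± 0.56, adjusted p = 0.326). Hmgb3 was at 4.51 to 8.58 CPM with a median of 6.06 against 5.04, 4.85 and 5.22 CPM (0.39 ± 0.22, adjusted p = 0.195). Neither passed.

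Genes of mitosis rose almost throughout their list. Of 24 tested members 23 were higher (19, 19 and 20 without normal liver 1, 2 and 3), with a median log2 fold change of 3.73, against 18.1% of all genes higher and a median of 0.05. The exception was the kinase Aurka, at 3.13 to 14.9 CPM with a median of 6.98 against 4.31, 4.07 and 3.25 CPM (0.96 ± 0.48, adjusted p = 0.145). Mki67, the proliferation antigen, was at 64.1, 53.6, 10.4, 13.2, 59.1 and 13.4 CPM in tumours 1 to 6 and at 2.32, 2.53 and 2.46 CPM in the normal livers, a log2 fold change of 3.90 ± 0.78 (adjusted p = 0.00649). Every tumour exceeded every normal liver, and tumours 1, 2 and 5 held several times the level of 3, 4 and 6. Top2a, which untangles DNA before division, was at 3.35 to 25.2 CPM with a median of 13.8 against 1.503, 1.96 and 1.18 CPM (3.13 ± 0.68, adjusted p = 0.00899). Cdk1, the kinase that starts mitosis, was at 3.51 to 23.3 CPM with a median of 11.4 against 1.83, 1.75 and 1.18 CPM (2.96 ± 0.61, adjusted p = 0.00716). Its cyclin partners rose too, Ccnb1 by 4.35 ± 0.88 (adjusted p = 0.0069) and Ccna2 by 3.90 ± 0.70 (adjusted p = 0.00431). Cdkn3, a phosphatase of cyclin-dependent kinases, rose by 5.46 ± 1.03 (adjusted p = 0.0052). The ubiquitin ligase subunit Ube2c rose by 4.91 ± 0.97 (adjusted p = 0.00626) and the mitotic kinase Plk1 by 4.34 ± 0.86 (adjusted p = 0.00629).

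Short sequence elements recur in the promoters of these mitotic genes. Of the 24 members, 19 had an entry in RefSeq's promoter table (GRCm38.p6), and within 250 bases before the start 17 of them (89.5%) held CCAAT on either strand, the core bound by NF-Y, against 34.5% of all 27025 promoters. The letters TTTGAA, the cell cycle homology element bound by the DREAM complex, occurred on either strand in 8 (42.1%), against 16.3% of all promoters. Both motifs are short and a match is a description of the letters, not a bound site. The promoters of Cdk1, of the B-type cyclin Ccnb2 and of Cdc20, the activator of the anaphase-promoting complex, are shown because they hold both motifs. Each is written in the direction of transcription up to the start site, all on the minus strand of GRCm38.p6, with CCAAT (or its reverse complement ATTGG) and TTTGAA in capitals.
Cdk1, chr10:69352913-69353162: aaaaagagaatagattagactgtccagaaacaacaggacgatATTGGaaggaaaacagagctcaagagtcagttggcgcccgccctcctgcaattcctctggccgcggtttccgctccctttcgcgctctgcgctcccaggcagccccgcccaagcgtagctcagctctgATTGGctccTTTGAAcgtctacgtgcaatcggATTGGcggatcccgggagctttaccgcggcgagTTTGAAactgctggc
Ccnb2, chr9:70421555-70421804: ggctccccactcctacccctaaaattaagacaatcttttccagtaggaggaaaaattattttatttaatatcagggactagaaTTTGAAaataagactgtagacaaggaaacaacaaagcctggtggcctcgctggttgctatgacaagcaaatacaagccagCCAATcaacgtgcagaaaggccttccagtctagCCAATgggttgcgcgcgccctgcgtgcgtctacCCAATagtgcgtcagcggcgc
Cdc20, chr4:118437344-118437593: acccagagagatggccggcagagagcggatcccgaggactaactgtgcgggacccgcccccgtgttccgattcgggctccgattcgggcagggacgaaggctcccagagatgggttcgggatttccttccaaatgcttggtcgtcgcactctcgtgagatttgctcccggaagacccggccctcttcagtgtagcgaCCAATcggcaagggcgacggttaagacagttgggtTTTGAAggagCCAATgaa
Transcripts of these genes rose by 2.96 ± 0.61, 3.77 ± 0.82 and 4.38 ± 0.89 on the log2 scale (adjusted p = 0.00716, 0.00891 and 0.00674).

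Genes of DNA replication and S-phase entry moved less. There 9 of 24 members rose, with a median of 0.82, and the count was 5 without normal liver 1 and 14 without tumour 3. Ccne1, the cyclin of S-phase entry, was at 4.38 to 9.48 CPM with a median of 7.44 in the tumours against 0.528, 0.407 and 0.788 CPM (3.64 ± 0.40, adjusted p = 0.000729). Ccnd1, the cyclin that answers growth factors, was at 49.9 to 144 CPM with a median of 87.4 against 21.9, 25.4 and 25.5 CPM (1.87 ± 0.36, adjusted p = 0.00594). Both were higher in each tumour than in any normal liver. Gins2, a subunit of the replicative helicase, rose by 2.83 ± 0.53 (adjusted p = 0.00519), and Uhrf1, which recruits DNA methylation to new strands, by 2.79 ± 0.55 (adjusted p = 0.00597). The helicase subunit Mcm2 rose by 1.21 ± 0.29 (adjusted p = 0.0135) and missed the threshold without normal liver 1 or 3 (adjusted p = 0.0561 and 0.0526). Pcna, the sliding clamp, was at 9.45 to 19.4 CPM with a median of 12.9 against 8.69, 9.12 and 10.1 CPM and did not pass (0.55 ± 0.23, adjusted p = 0.0816).

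**Figure D2:**
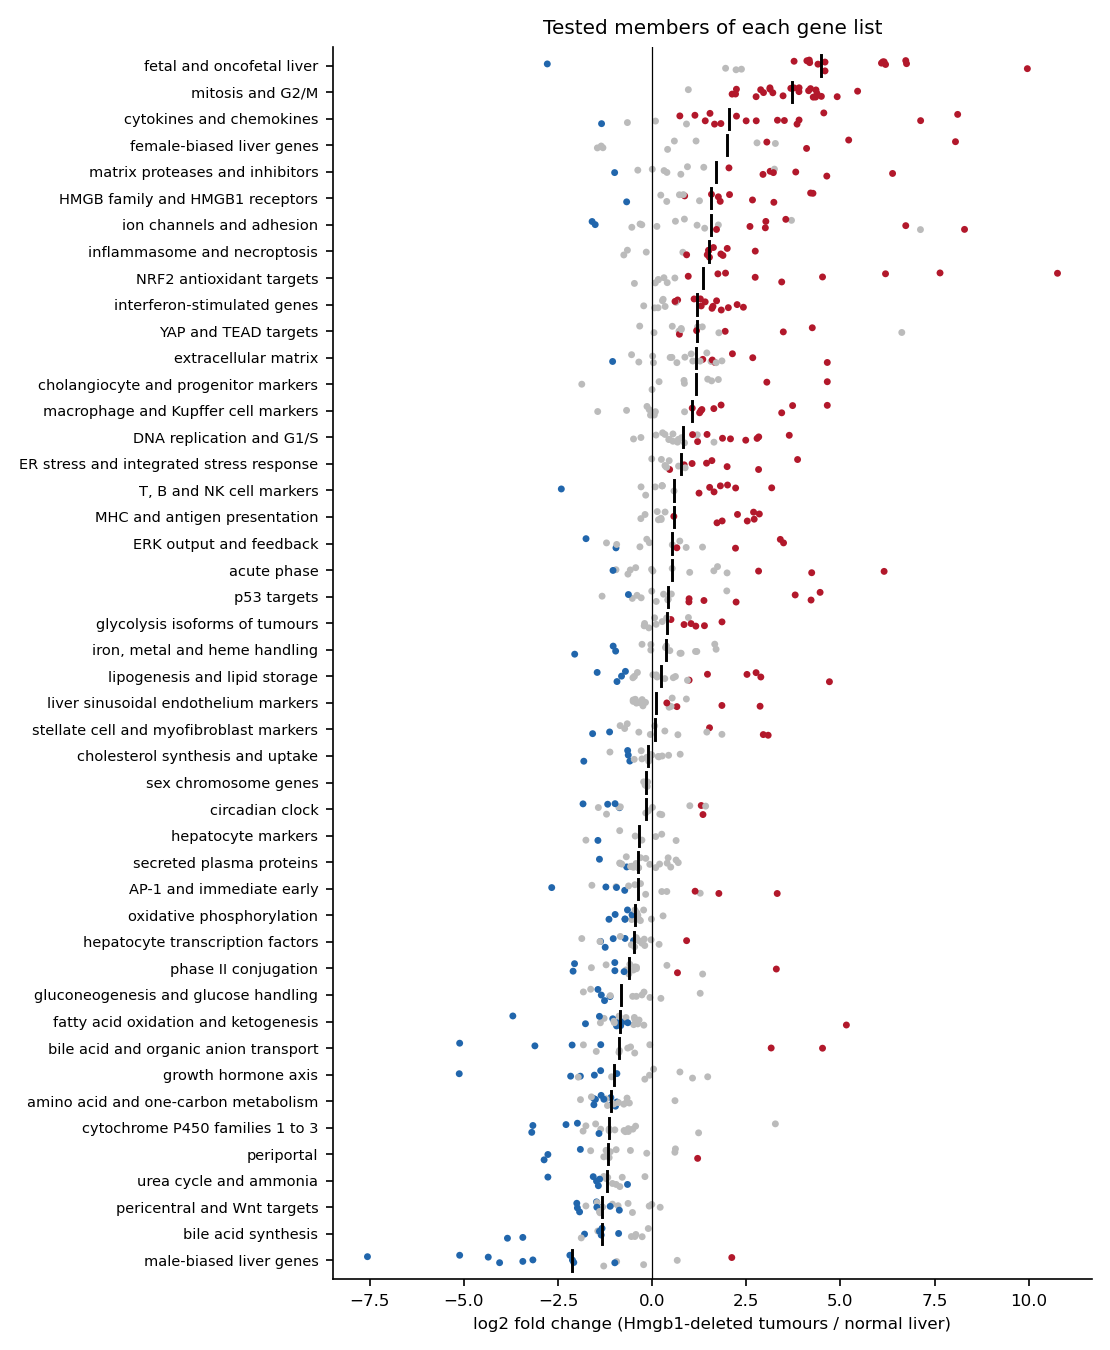
Each point is the log2 fold change (x) of 1 tested member of the gene list named on the left, red where called higher in Hmgb1-deleted tumours, blue where called lower and grey where not called, with the list's median as a black bar. The fetal and mitosis lists have medians of 4.50 and 3.73, while the male-biased and bile acid synthesis lists, at the bottom, have medians of -2.12 and -1.34.

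Fetal and tumour-marker genes stood highest of all lists by median. Members of this list, as of the others, were chosen with earlier results of these data known. Its rank and count are therefore a description of the chosen genes. Of 18 tested members 14 rose (9 without normal liver 1 and 9 without 2), at a median of 4.50. Gpc3, the heparan sulfate proteoglycan used as a marker of liver cancer, was at 19.4, 126, 135, 84.7, 373 and 97.3 CPM in tumours 1 to 6 and at 1.30, 2.73 and 1.72 CPM in normal liver (6.20 ± 0.97, adjusted p = 0.00271). All 6 tumours were far above the normal livers, and tumour 1 was the lowest. Golm1, a Golgi protein shed into serum by liver tumours, was at 31.5 to 76.1 CPM with a median of 49.4 against 4.43, 4.28 and 2.91 CPM (3.77 ± 0.42, adjusted p = 0.000811). Cd63, a tetraspanin of late endosomes, was at 12.4 to 36.5 CPM with a median of 23.6 against 1.22, 1.18 and 1.67 CPM (4.17 ± 0.39, adjusted p = 0.000507), and Scd2, a desaturase that adult liver hardly uses, at 52.99 to 221 CPM with a median of 119 against 7.27, 8.96 and 6.70 CPM (4.11 ± 0.53, adjusted p = 0.00142). Each of these was higher in every tumour. Akr1b7, an aldo-keto reductase, rose by 4.59 ± 0.55 (adjusted p = 0.00102). The classical fetal markers were less uniform. Afp, the fetal serum protein, was at 28.9, 4.38, 88.2, 84.1, 17.4 and 121 CPM in tumours 1 to 6 against 1.99, 2.24 and 3.94 CPM, rose by 4.40 ± 1.03 (adjusted p = 0.0118) and missed the threshold without normal liver 1 or 2 (adjusted p = 0.0589 and 0.0566). H19, the imprinted RNA, was at 18.4, 1.49, 1.17, 0.377, 1.23 and 1.15 CPM against 0.203, 0.163 and 0.295 CPM, and its call (4.18 ± 1.46, adjusted p = 0.0496) missed the threshold without normal liver 1, 2 or 3 or without tumour 2 or 5 (adjusted p from 0.0507 to 0.146). Tumour 1 set most of it, and without that tumour the log2 fold change was 2.32. Igf2, its imprinted neighbour, did not pass at 0.323 to 5.21 CPM with a median of 0.843 against 0.406, 0.448 and 0.345 CPM (2.23 ± 0.97, adjusted p = 0.0993). The 1 member that fell was Mia2, a liver protein of the secretory pathway, at 5.63 to 19.9 CPM with a median of 12.3 against 102, 103 and 55.8 CPM (-2.79 ± 0.37, adjusted p = 0.00146).

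Surface and adhesion genes of the second tumour-marker list split. 7 of 20 members rose and 2 fell (4, 3 and 4 rose and 1 fell without normal liver 1, 2 or 3). Anxa2, a calcium-dependent membrane protein, was at 74.6 to 212 CPM with a median of 143 against 13.2, 13.5 and 12.95 CPM (3.55 ± 0.36, adjusted p = 0.000649), and Lgals3, a galactoside-binding lectin, at 14.2 to 65.1 CPM with a median of 23.2 against 3.57, 3.91 and 3.69 CPM (3.01 ± 0.54, adjusted p = 0.00451). Cdh2, the N-cadherin that joins hepatocytes, was lower in every tumour, at 30.0 to 40.0 CPM with a median of 32.3 against 107, 97.8 and 87.4 CPM (-1.51 ± 0.11, adjusted p = 0.000203). Cdh1, the E-cadherin, was at 64.2 to 171 CPM with a median of 142 against 94.7, 109 and 63.1 CPM (0.62 ± 0.30, adjusted p = 0.127). Epcam, an adhesion molecule of epithelia, was at 1.27 to 23.6 CPM with a median of 2.79 against 1.87, 1.996 and 1.67 CPM (1.76 ± 0.99, adjusted p = 0.187). Neither was called.

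The largest rises were of genes that normal liver hardly transcribes, and most of them differed widely between tumours. Slc7a11, the cystine importer that feeds glutathione synthesis, was an exception: it was at 62.9, 27.0, 25.4, 34.7, 22.9 and 30.7 CPM in tumours 1 to 6 and had 1 count in the 3 normal livers together. The ratio of the pooled levels was 2397 (exact 95% counting interval 430.1 to 94712), and the fitted log2 fold change was 10.77 ± 0.70 (adjusted p = 0.000113). Spink3, a secreted trypsin inhibitor, was at 10.2, 155, 13.7, 32.7, 227 and 14.4 CPM against 0, 0.122 and 0.0985 CPM (9.97 ± 1.93, adjusted p = 0.00582), with the highest levels in tumours 2 and 5. Sult1e1, the estrogen sulfotransferase, Sprr1a, a protein of the cornified envelope, and the interferon-inducible Ifi202b had 0 counts in all normal livers. Against 3 counts over the group they were at least 232-fold, 252-fold and 123-fold higher over the pooled tumours. Their values in tumours 1 to 6 were 1.76, 2.75, 29.4, 33.3, 1.08 and 4.31 CPM for Sult1e1, 49.4, 2.04, 2.18, 4.04, 0.746 and 0.410 CPM for Sprr1a and 10.98, 7.91, 3.45, 4.25, 0 and 4.27 CPM for Ifi202b. Sprr1a was thus high in tumour 1 alone and Sult1e1 in tumours 3 and 4. Sult1e1 missed the threshold without normal liver 1 or 2 (adjusted p = 0.0596 and 0.0584). Sprr1a missed the threshold without normal liver 1, 2 or 3 or without tumour 2 or 4 (adjusted p from 0.0538 to 0.109). Ifi202b missed the threshold without normal liver 1 or 2 (adjusted p = 0.0576 and 0.0563). The normal livers are C57Bl/6 and the strain of the tumour mice is not given. For Ifi202b and the other genes at 0 counts there, strain and tumour state cannot be told apart.

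H2-Ea-ps, the class II E-alpha gene, was at 41.3, 85.4, 0.0531, 0.108, 87.1 and 25.7 CPM in tumours 1 to 6 and had 1 count over the normal livers. It was thus high in 4 tumours and near 0 in tumours 3 and 4. Mice of the H2 b haplotype, C57Bl/6 among them, do not transcribe this gene, and strain cannot be told apart here from the other differences between the groups. Its call missed the threshold without normal liver 1, 2 or 3 (adjusted p = 0.082, 0.094 and 0.0702). Akr1c18, a progesterone-inactivating reductase, was at 27.9, 0.557, 163, 63.5, 0.410 and 119 CPM against 0.0406, 0.204 and 0.148 CPM, and Gldn, gliomedin, at 58.6, 1.003, 79.2, 23.4, 0.783 and 78.1 CPM against 0, 0.0407 and 0.197 CPM. Both were lowest in tumours 2 and 5. Tinag, a basement membrane protein of the kidney tubule, was at 1.87, 16.98, 3.13, 3.50, 42.9 and 2.22 CPM in tumours 1 to 6 with 1 count over the normal livers, and Gm10664 at 2.89, 33.4, 0.744, 1.35, 62.5 and 0.369 CPM with 2 counts. Both were highest in tumours 2 and 5. The liver-intestine cadherin Cdh17 was at 5.63, 0.855, 14.1, 0.538, 0.373 and 15.3 CPM and the chemokine Cxcl17 at 0.329, 0.446, 0.531, 2.91, 0.448 and 26.8 CPM, each with 1 count over the normal livers. All 6 genes passed (adjusted p from 0.00898 to 0.039). However, Tinag missed the threshold without normal liver 2 (adjusted p = 0.0519) and Gldn without 1 or 2 (0.0622 and 0.0608). The other 4 missed it without any 1 of the 3 normal livers (highest adjusted p = 0.132).

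Antioxidant genes under NRF2, the transcription factor that answers electrophiles and oxidants, formed one of the steadier groups. 9 of 16 members rose at a median of 1.35, the mean log2 ratio to normal liver was 2.02, 1.68, 1.35, 1.67, 1.52 and 1.57 in tumours 1 to 6, and no setting with 1 library left out moved the count by over 1.5 times. Nqo1, a quinone reductase, was at 34.5 to 105 CPM with a median of 73.8 against 6.01, 5.66 and 7.78 CPM (3.44 ± 0.46, adjusted p = 0.00155). Abcc4, an exporter of conjugates and bile acids, was at 44.7 to 99.4 CPM with a median of 75.1 against 3.70, 2.77 and 3.15 CPM (4.53 ± 0.33, adjusted p = 0.000203). Gsta1, a glutathione transferase with near-identical copies, was at 20.7 to 93.2 CPM with a median of 28.1 against 0.447, 0.285 and 1.13 CPM (6.20 ± 0.82, adjusted p = 0.00149), and Gstm1 at 2227 to 3573 CPM with a median of 3047 against 715, 654 and 922 CPM (1.95 ± 0.26, adjusted p = 0.00146). None of these 4 overlapped between the groups. The 2 subunits of the enzyme that begins glutathione synthesis did not follow. Gclc was at 494 to 811 CPM with a median of 636 against 769, 567 and 438 CPM (0.16 ± 0.24, adjusted p = 0.611), and Gclm at 125 to 234 CPM with a median of 186 against 191, 162 and 161 CPM (0.08 ± 0.21, adjusted p = 0.772). Hmox1, the heme oxygenase, rose by 0.96 ± 0.25 (adjusted p = 0.0177) and missed the threshold without normal liver 1 or 2 (adjusted p = 0.0713 and 0.0806). TGACNNNGC, the core to which NRF2 and small MAF proteins bind, occurred within 250 bases before the start in 4 of 14 members with a promoter entry (28.6%), against 10.1% of all promoters. In the mitosis list it occurred in 3 of 19 (15.8%). The members were listed as NRF2 targets, so this share describes the list and not these tumours.

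Damage and stress programmes were higher in part. Of 19 p53 targets 7 rose and 1 fell, at a median of 0.42. Cdkn1a, the cell cycle inhibitor p21, was at 7.10 to 67.3 CPM with a median of 50.1 against 4.55, 3.50 and 1.62 CPM (3.80 ± 0.75, adjusted p = 0.00613). Phlda3, a repressor of AKT, was at 4.20 to 21.8 CPM with a median of 13.4 against 0.731, 0.570 and 0.936 CPM (4.22 ± 0.60, adjusted p = 0.00195), and the death receptor Tnfrsf10b was at 3.23 to 15.9 CPM with a median of 11.4 against 0.406, 0.204 and 0.837 CPM (4.46 ± 0.67, adjusted p = 0.00233). In each the lowest tumour, number 4, still exceeded all normal livers. The death gene Bax rose by 1.38 ± 0.19 (adjusted p = 0.00166) and Pmaip1, which acts with it, by 2.23 ± 0.39 (adjusted p = 0.00405). Mdm2, which p53 induces and which degrades it, was at 45.7 to 75.5 CPM with a median of 56.2 against 46.8, 43.7 and 41.2 CPM and did not pass (0.42 ± 0.17, adjusted p = 0.0704). Neither did Ccng1, cyclin G, at 49.4 to 68.3 CPM with a median of 60.3 against 46.6, 44.0 and 55.8 CPM (0.30 ± 0.14, adjusted p = 0.113). The member that fell was Ei24, a protein of the endoplasmic reticulum (-0.63 ± 0.21, adjusted p = 0.0401), which missed the threshold without normal liver 1, 2 or 3, without tumour 1, 2 or 5 or under upper-quartile factors (adjusted p from 0.0601 to 0.139).

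Stress of the endoplasmic reticulum and amino acid shortage, read from 16 genes, gave 8 rises at a median of 0.78 (3, 3 and 4 without normal liver 1, 2 and 3). Ddit3, the death-promoting factor CHOP, was at 12.7 to 44.0 CPM with a median of 27.1 against 8.21, 5.70 and 6.25 CPM (1.99 ± 0.42, adjusted p = 0.00787), and Psat1, of serine synthesis, at 3.13 to 20.6 CPM with a median of 15.1 against 0.934, 0.978 and 0.689 CPM (3.86 ± 0.72, adjusted p = 0.00495). The chaperone Hspa5 was at 1037 to 2086 CPM with a median of 1188 against 795, 872 and 603 CPM (0.85 ± 0.28, adjusted p = 0.0434) and missed the threshold without normal liver 1, 2 or 3 or without tumour 1, 3 or 6 (adjusted p from 0.0511 to 0.153). The transcription factor Atf4 was at 159 to 214 CPM with a median of 175 against 125, 132 and 137 CPM (0.46 ± 0.14, adjusted p = 0.0337) and missed the threshold without normal liver 1, 2 or 3 or without tumour 2 (adjusted p from 0.051 to 0.126). Xbp1, a factor of the unfolded protein response, did not pass at 260.1 to 540.3 CPM with a median of 340.5 against 188, 381 and 298 CPM (0.36 ± 0.31, adjusted p = 0.381).

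Growth signalling was mixed. Of 15 genes that report ERK activity 4 rose and 2 fell, and without normal liver 1, 2 or 3 the counts were 1 and 1 each time, with 1 lower without tumour 2 and 4 without tumour 3. Etv4, a transcription factor of this pathway, was at 0.522 to 1.46 CPM with a median of 0.831 against 0.0812, 0.244 and 0.246 CPM (2.21 ± 0.48, adjusted p = 0.00891). Phlda1 was at 26.7 to 90.1 CPM with a median of 42.6 against 66.7, 149 and 259 CPM (-1.76 ± 0.44, adjusted p = 0.0149) and missed the threshold without normal liver 3 (adjusted p = 0.0816). Spry1, a feedback inhibitor, rose by 0.66 ± 0.20 (adjusted p = 0.0287) and missed the threshold without normal liver 1, 2 or 3 (adjusted p = 0.0621, 0.0861 and 0.101). Dusp6, the phosphatase of ERK, was at 49.6 to 139 CPM with a median of 78.5 against 75.9, 154 and 48.8 CPM and was not called (-0.14 ± 0.38, adjusted p = 0.783), nor was Spry2 at 1.26 to 4.89 CPM with a median of 2.40 against 1.14, 1.14 and 1.08 CPM (1.34 ± 0.48, adjusted p = 0.0529). The immediate early genes, which rise within minutes of handling or injury, varied widely among the normal livers. Fos was at 56.1, 28.3 and 1.87 CPM there and at 6.22 to 15.8 CPM with a median of 8.62 in the tumours, without a call (-1.60 ± 0.68, adjusted p = 0.0905). Jun was at 113, 265 and 47.1 CPM in normal liver and 56.5 to 81.4 CPM with a median of 74.0 in the tumours (-0.96 ± 0.40, adjusted p = 0.0858). Of 16 members 3 rose and 4 fell (1 and 1 without normal liver 1, 2 and 1 without 2). Btg1, an antiproliferative gene, was lower in every tumour, at 28.9 to 34.9 CPM with a median of 31.1 against 77.3, 61.1 and 47.9 CPM (-0.95 ± 0.14, adjusted p = 0.00202). Egr2, a zinc finger factor, was higher in every tumour, at 0.574 to 2.23 CPM with a median of 1.06 against 0.162, 0.163 and 0.0492 CPM (3.32 ± 0.70, adjusted p = 0.0077). Of 15 genes of the YAP pathway 5 rose, but only 1 did so without normal liver 1 or without 2, 0 without 3 (by edgeR, with 5 at an unadjusted p under 0.05), and 8 without tumour 3. Beside targets of YAP, the coactivator of organ growth, this list holds YAP itself, its partners and a regulator. Some of the rises were of partners and not of targets. Ankrd1, a muscle ankyrin repeat protein, was at 5.49, 111, 1.01, 0.646, 173 and 1.23 CPM in tumours 1 to 6 against 0.650, 0.448 and 0.394 CPM, and did not pass (6.63 ± 2.38, adjusted p = 0.0549). Ctgf, a matricellular protein, was at 26.1, 52.5, 11.5, 7.53, 147 and 14.1 CPM against 2.60, 6.23 and 3.00 CPM, rose by 3.48 ± 1.07 (adjusted p = 0.0321) and missed the threshold without normal liver 1, 2 or 3 (adjusted p = 0.118, 0.0765 and 0.103).

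Genes of the inflammasome and of necroptosis, a lytic form of cell death, were higher in 10 of 14 cases, at a median of 1.501. Casp1, the protease that matures interleukin-1, was at 4.84 to 9.29 CPM with a median of 6.70 against 2.27, 2.48 and 2.56 CPM (1.52 ± 0.27, adjusted p = 0.00389). Il1b, its substrate, was at 5.01 to 9.29 CPM with a median of 6.74 against 1.87, 2.08 and 1.92 CPM (1.82 ± 0.24, adjusted p = 0.00146), and Mlkl, the pore-former of necroptosis, at 13.9 to 34.3 CPM with a median of 18.4 against 5.16, 5.58 and 4.87 CPM (1.99 ± 0.30, adjusted p = 0.0024). The DNA sensor Aim2 rose by 1.63 ± 0.30 (adjusted p = 0.00486). All 4 were higher in each tumour than in each normal liver. Nlrp3, the sensor of the best known inflammasome, did not pass at 0.850 to 2.61 CPM with a median of 2.102 against 1.58, 1.22 and 0.443 CPM (0.81 ± 0.46, adjusted p = 0.188). Ripk3, the kinase upstream of Mlkl, rose by 0.91 ± 0.29 (adjusted p = 0.0373) and missed the threshold without normal liver 1, 2 or 3 or without tumour 1, 4 or 5 (adjusted p from 0.0512 to 0.135). Members shared with macrophages rose here, and the summed level of macrophage genes, given with the immune markers, was also higher in the tumours. The part of those cells was not tested.

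The list of HMGB genes, HMGB1 receptors and partners, and S100 proteins, a further class of alarm signals, had 9 rises among 15 tested members, 3 of them S100 genes, and Hmgb1 itself was the 1 that fell (5 rose without normal liver 1 and 5 without 2). Havcr2, the inhibitory receptor TIM-3, was at 1.12 to 4.74 CPM with a median of 2.29 against 0.284, 0.244 and 0.345 CPM (3.23 ± 0.54, adjusted p = 0.00348), and the chemokine receptor Cxcr4 at 1.70 to 18.9 CPM with a median of 5.89 against 0.162, 0.611 and 0.394 CPM (4.27 ± 0.88, adjusted p = 0.00711). The calcium-binding protein S100a11 was at 15.2 to 97.8 CPM with a median of 37.1 against 2.11, 2.69 and 3.00 CPM (4.21 ± 0.78, adjusted p = 0.00504), and S100a6 at 4.68 to 22.7 CPM with a median of 10.05 against 1.38, 1.87 and 2.17 CPM (2.66 ± 0.53, adjusted p = 0.00629). None of these 4 overlapped between the groups. Of the classical receptors only Tlr4 and Ager are described here, both at low levels. Of the other receptors of the TLR family in the list, 1 rose (adjusted p = 0.00748) and 1 was not called (adjusted p = 0.247). Tlr4 was at 1.97 to 3.37 CPM with a median of 2.53 against 1.62, 1.38 and 1.33 CPM (0.86 ± 0.24, adjusted p = 0.0214) and missed the threshold without normal liver 1, 2 or 3 (adjusted p = 0.0623, 0.0858 and 0.0742). Ager was at 0.478 to 1.30 CPM with a median of 0.655 against 0.284, 0.0815 and 0.443 CPM (1.58 ± 0.54, adjusted p = 0.0473) and missed the threshold without normal liver 1 or 2 or without tumour 1, 2, 5 or 6 (adjusted p from 0.0509 to 0.151).

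**Figure D3:**
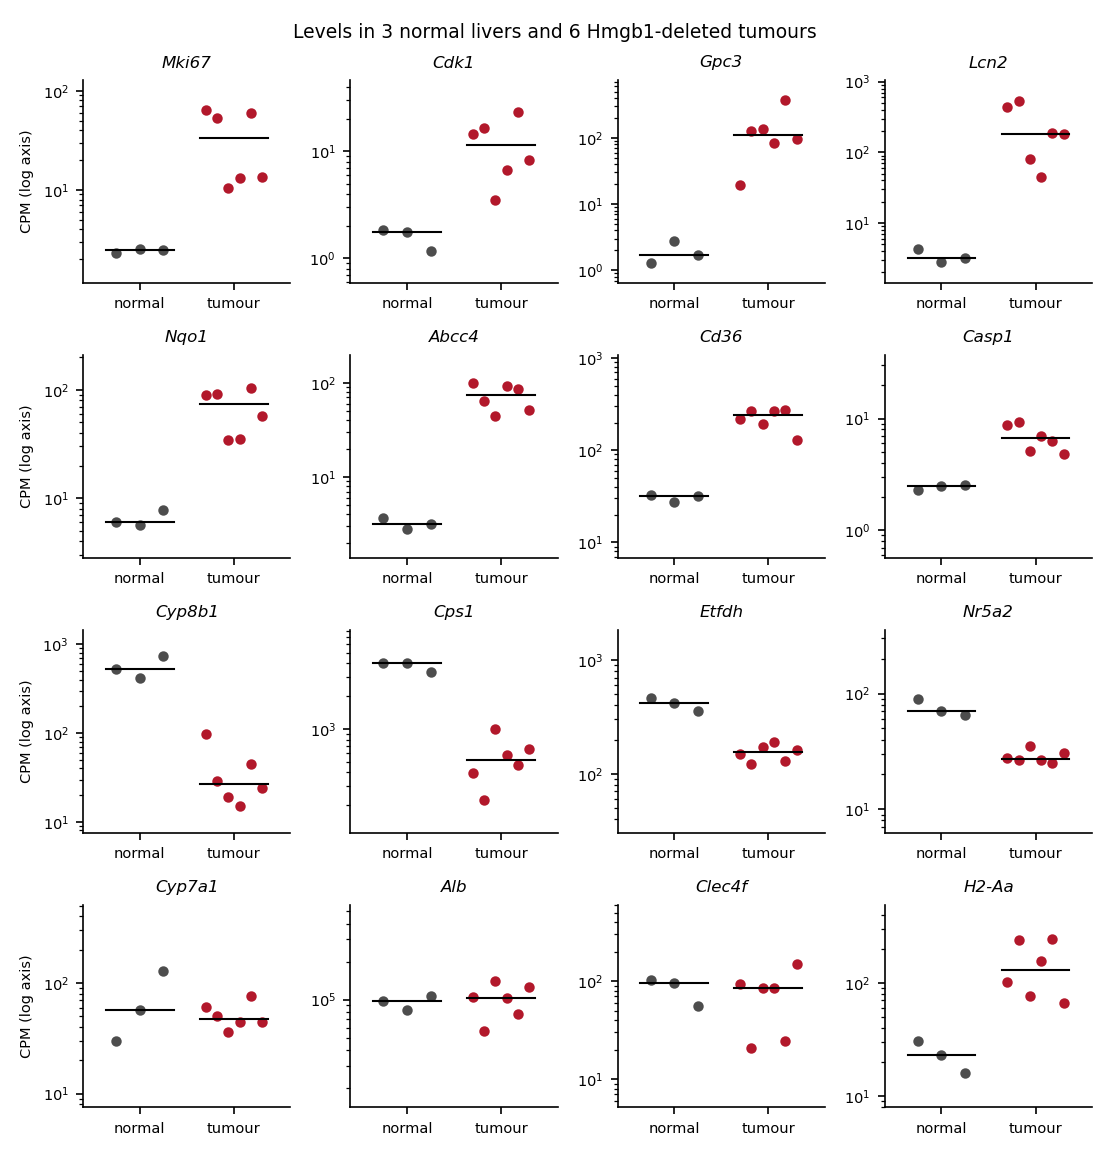
Level of 16 genes in CPM on a log axis in each of the 3 normal livers (grey) and 6 Hmgb1-deleted tumours (red, in the order of their numbers), with a bar at each group's median. The 2 upper rows show genes higher in all tumours and the third row genes lower in all tumours, while Cyp7a1, Alb and Clec4f overlap between the groups and H2-Aa is higher in all tumours.

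Bile acid synthesis was lower in several enzymes, but no call was made for the one that sets its rate. 7 of 14 members fell, at a median of -1.34 (3 without normal liver 2). Cyp8b1, the 12-alpha-hydroxylase that makes cholic acid, was at 15.2 to 96.9 CPM with a median of 26.5 against 524, 419.7 and 731 CPM (-3.85 ± 0.54, adjusted p = 0.00194). Cyp7b1, of the alternative pathway, was at 15.3 to 81.3 CPM with a median of 30.6 against 422, 505 and 309 CPM (-3.44 ± 0.44, adjusted p = 0.00139), and Hsd3b7 at 113 to 410.1 CPM with a median of 272 against 951, 962 and 873 CPM (-1.80 ± 0.34, adjusted p = 0.0053). Every tumour lay below every normal liver in these 3. Cyp27a1, the sterol 27-hydroxylase, fell by 1.35 ± 0.33 (adjusted p = 0.0133) and missed the threshold without normal liver 2 (adjusted p = 0.0533). Cyp7a1, the rate-limiting enzyme, was at 61.1, 50.8, 36.3, 44.5, 76.3 and 44.1 CPM in tumours 1 to 6 and 30.0, 56.5 and 128 CPM in normal liver, so that the groups overlapped (-0.43 ± 0.39, adjusted p = 0.405). Among transporters, 4 of 14 fell and 2 rose. 3 importers of organic anions fell. Slco1a1 was at 9.77 to 28.7 CPM with a median of 16.99 against 739, 699.7 and 593 CPM (-5.11 ± 0.32, adjusted p = 8.66e-05), Slco1b2 at 132 to 714 CPM with a median of 292 against 1575, 1509 and 1589.6 CPM (-2.13 ± 0.50, adjusted p = 0.0117), and Slco1a4 fell by 3.12 ± 0.66 (adjusted p = 0.00787). The exporters Abcc4, given above, and Ostb, a subunit of the basolateral bile acid exporter, rose. Ostb was at 0.369 to 1.98 CPM with a median of 1.09 against 0.0406, 0.204 and 0.148 CPM (3.16 ± 0.71, adjusted p = 0.0101). A further importer, Slc22a7, was not called (-1.49 ± 0.98, adjusted p = 0.255). Slc10a1, the main bile acid importer, was at 97.9, 75.2, 436, 474, 19.4 and 208 CPM in tumours 1 to 6 against 650.4, 748 and 925 CPM and did not pass (-1.83 ± 0.76, adjusted p = 0.0854). Abcb11, the canalicular exporter, fell by 1.37 ± 0.36 (adjusted p = 0.0176) and missed the threshold without normal liver 1 or 2 (adjusted p = 0.068 and 0.0675). Abcc2, which exports bilirubin conjugates, was not called at 258 to 709 CPM with a median of 376 against 761, 611 and 599 CPM (-0.57 ± 0.31, adjusted p = 0.174).

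Some drug-metabolising enzymes were called, and their levels differed widely between tumours. The summed level of the cytochrome P450 list was 3143 to 22639 CPM in the tumours and 24264 to 28874 CPM in the normal livers. For the conjugating enzymes below it was 4203 to 8888 CPM and 9979 to 10728 CPM. Every tumour thus lay below every normal liver in both sums. Of 20 cytochrome P450 genes 5 fell over all 6 tumours, at a median of -1.14. The count was 8 without tumour 4 and 3 without any 1 normal liver or without tumour 2. Cyp2e1, which activates CCl4 to its toxic radical, was at 519, 1256, 4277, 7049, 685 and 3402 CPM in tumours 1 to 6 and 8853, 8772 and 11468 CPM in normal liver. All tumours were below the normal livers, yet the fold change did not pass (-1.76 ± 0.72, adjusted p = 0.0823). Cyp2d9, a male-predominant enzyme, was at 56.6 to 222 CPM with a median of 187 against 1333, 1429 and 1473 CPM (-3.17 ± 0.43, adjusted p = 0.00157), and Cyp2j5, an arachidonic acid epoxygenase, at 230.1 to 437 CPM with a median of 322 against 910.4, 821 and 850.5 CPM (-1.41 ± 0.20, adjusted p = 0.00182). Cyp1a2, which metabolises caffeine, fell by 1.99 ± 0.64 (adjusted p = 0.0378) and missed the threshold without normal liver 1, 2 or 3 or without tumour 2, 3 or 5 (adjusted p from 0.0515 to 0.0999). Cyp2c29 fell by 2.29 ± 0.70 (adjusted p = 0.0313) and missed the threshold without normal liver 1, 2 or 3 or without tumour 1 or 2 (adjusted p from 0.0527 to 0.1). Cyp3a11 did not pass, at 227 to 3678 CPM with a median of 1606 against 3391, 3232 and 5086 CPM (-1.14 ± 0.68, adjusted p = 0.209). Conjugating enzymes of phase II fell in 5 of 18 cases and rose in 2 (2, 2 and 3 fell and 1, 1 and 2 rose without normal liver 1, 2 and 3, and 8 fell without tumour 4). Ugt1a1, which conjugates bilirubin, was at 31.6 to 136 CPM with a median of 69.1 against 342, 307 and 305 CPM (-2.06 ± 0.44, adjusted p = 0.00815), and Gstp1, which has a close copy, at 284 to 578 CPM with a median of 434 against 873, 926 and 841 CPM (-0.99 ± 0.22, adjusted p = 0.00939). Gstm3 went the other way, at 210.1 to 988 CPM with a median of 334 against 39.0, 42.0 and 61.2 CPM (3.30 ± 0.57, adjusted p = 0.00388). Gsta3 fell by 0.99 ± 0.25 (adjusted p = 0.0149) and missed the threshold without normal liver 1, 2 or 3 (adjusted p = 0.0622, 0.0566 and 0.0526). Sult1a1, a phenol sulfotransferase, was not called at 196 to 1217 CPM with a median of 256 against 162, 145 and 253 CPM (1.34 ± 0.65, adjusted p = 0.132).

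Genes of mitochondrial fuel use fell in part. Of 22 genes of fatty acid oxidation and ketone body synthesis 9 fell, at a median of -0.86 (4 without normal liver 1 and 5 without 2). Etfdh, which passes electrons from acyl-CoA dehydrogenases to the respiratory chain, was at 122 to 189.7 CPM with a median of 155 against 459.6, 419 and 354 CPM (-1.40 ± 0.16, adjusted p = 0.000921). Hadha, of the trifunctional protein, was at 179 to 289.6 CPM with a median of 258 against 556, 512 and 445 CPM (-1.05 ± 0.18, adjusted p = 0.00358), and Cpt2, the inner carnitine palmitoyltransferase, at 85.6 to 156 CPM with a median of 110.4 against 242, 220.1 and 196 CPM (-0.94 ± 0.19, adjusted p = 0.00665). The long-chain dehydrogenase Acadvl fell by 0.95 ± 0.20 (adjusted p = 0.00762), and no tumour reached a normal liver in any of these 4. The outer transferase Cpt1a fell by 0.73 ± 0.19 (adjusted p = 0.0174) and missed the threshold without normal liver 1, 2 or 3 or without a factor (adjusted p from 0.0549 to 0.0797). Ppara, the nuclear receptor over this pathway, was at 70.1 to 304 CPM with a median of 109.7 against 383, 344 and 447 CPM, without a call (-1.28 ± 0.45, adjusted p = 0.0529). The 1 member that rose was Fgf21, the fasting and stress hormone, at 23.5, 65.2, 1.17, 3.07, 72.0 and 6.40 CPM in tumours 1 to 6 against 0.894, 1.18 and 0.345 CPM (5.16 ± 1.505, adjusted p = 0.0267). It was highest in tumours 1, 2 and 5 and missed the threshold without normal liver 1, 2 or 3 (adjusted p = 0.0946, 0.0833 and 0.0908). Of 16 subunits of oxidative phosphorylation 6 fell (2 without any 1 normal liver, 10 without tumour 4), among them the complex I subunit Ndufs1 (-0.98 ± 0.17, adjusted p = 0.00366) and Sdha of complex II (-1.15 ± 0.26, adjusted p = 0.00949). Atp5b of the ATP synthase fell by 0.72 ± 0.20 (adjusted p = 0.0205) and missed the threshold without normal liver 1, 2 or 3 (adjusted p = 0.0779, 0.0802 and 0.0636). Cox4i1 of complex IV was not called (-0.23 ± 0.21, adjusted p = 0.418).

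Genes of fat uptake, synthesis and storage moved both ways, with 6 of 20 members higher and 4 lower (2 lower without normal liver 1 or 3 or without a scaling factor, and 0 without 2, where edgeR had 4 lower at an unadjusted p under 0.05). Cd36, a fatty acid importer, was at 217, 267, 195, 265, 272 and 131 CPM in tumours 1 to 6 against 33.1, 27.2 and 32.1 CPM (2.89 ± 0.27, adjusted p = 0.000467). Pnpla3, a lipase of lipid droplets, was at 4.36 to 48.8 CPM with a median of 23.1 against 0.650, 0.896 and 1.48 CPM (4.71 ± 0.92, adjusted p = 0.00586), and Plin4, a droplet coat protein, at 13.2 to 64.8 CPM with a median of 21.98 against 4.79, 3.67 and 4.53 CPM (2.76 ± 0.54, adjusted p = 0.00608). Acaca, which makes malonyl-CoA, rose by 0.98 ± 0.19 (adjusted p = 0.00554). All 4 were higher in every tumour. Fasn, the fatty acid synthase, was at 296 to 949 CPM with a median of 605 against 233, 699 and 581 CPM (0.34 ± 0.42, adjusted p = 0.552), and Scd1, the main liver desaturase, at 3019 to 12127 CPM with a median of 7354 against 2503, 4420.3 and 7709 CPM (0.62 ± 0.47, adjusted p = 0.319). Neither was called. Of the rises, Acaca was the 1 synthesis enzyme, and the others were of fat uptake and lipid droplets. The 4 that fell were Srebf1, Gpam, Dgat2 and Plin5. Srebf1, the transcription factor over fat synthesis, fell by 0.81 ± 0.23 (adjusted p = 0.0231) and missed the threshold without normal liver 2 or 3, under upper-quartile factors or without a factor (adjusted p from 0.0502 to 0.125). Gpam, which begins triglyceride synthesis, fell by 1.46 ± 0.33 (adjusted p = 0.0106) and missed the threshold without normal liver 2 (adjusted p = 0.0507). Dgat2, which completes it, fell by 0.94 ± 0.27 (adjusted p = 0.026) and missed the threshold without normal liver 1, 2 or 3 (adjusted p = 0.0764, 0.0801 and 0.0897), and the droplet protein Plin5 fell by 0.71 ± 0.17 (adjusted p = 0.0119) and missed the threshold without normal liver 1 or 2 or without a factor (adjusted p = 0.0672, 0.0525 and 0.0917). Of 18 genes of cholesterol synthesis and uptake 4 fell (2 without normal liver 2 and 2 without 3, 2 under upper-quartile factors and 1 without a factor). Stard4, a sterol carrier, was at 14.3 to 39.7 CPM with a median of 23.4 against 75.4, 96.8 and 99.9 CPM (-1.82 ± 0.28, adjusted p = 0.0026).

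Genes of nitrogen, sugar and amino acid metabolism were lower in part. Of 14 urea cycle and ammonia genes 6 fell, at a median of -1.20 (3 without normal liver 1 or 2). Cps1, which fixes ammonia in the first step, was at 395, 224, 1006, 577, 466 and 652 CPM in tumours 1 to 6 against 3995, 4071 and 3365 CPM (-2.77 ± 0.38, adjusted p = 0.00171). Slc25a13, the mitochondrial aspartate carrier, was at 64.5 to 147 CPM with a median of 83.5 against 304, 276 and 290.4 CPM (-1.57 ± 0.26, adjusted p = 0.00348), and Nags, whose product activates Cps1, at 42.7 to 64.0 CPM with a median of 53.6 against 86.7, 86.1 and 83.4 CPM (-0.66 ± 0.13, adjusted p = 0.00581). 3 later enzymes of the cycle were not called. Otc was at 60.7 to 646 CPM with a median of 221 against 646, 624 and 820.2 CPM (-1.22 ± 0.62, adjusted p = 0.149), Ass1 at 23.4 to 130.1 CPM with a median of 62.9 against 132, 147 and 205 CPM (-1.18 ± 0.54, adjusted p = 0.111) and Arg1 at 295 to 1026 CPM with a median of 657 against 1178, 1310.1 and 1430.5 CPM (-0.96 ± 0.39, adjusted p = 0.0812). Of 14 genes of gluconeogenesis and glucose handling 4 fell (1, 2 and 2 without normal liver 1, 2 and 3, 2 under upper-quartile factors). Fbp1, fructose bisphosphatase, was at 343 to 688 CPM with a median of 467 against 1056, 949 and 1188 CPM (-1.12 ± 0.24, adjusted p = 0.00834). Pck1, which commits pyruvate carbon to glucose, was at 114, 56.1, 1526, 1754, 113 and 802 CPM in tumours 1 to 6 against 2835, 2368 and 1566 CPM (-1.64 ± 0.96, adjusted p = 0.205). G6pc, which releases free glucose, was at 80.4, 43.8, 493, 506, 72.2 and 647 CPM against 1013, 2035 and 231 CPM (-1.83 ± 0.90, adjusted p = 0.135). Both were lowest in tumours 1, 2 and 5. Neither passed.

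Of 20 genes of amino acid and one-carbon metabolism 9 fell (3 without any 1 normal liver). Cbs, of transsulfuration, was at 147 to 478 CPM with a median of 236 against 845, 819 and 681 CPM (-1.55 ± 0.32, adjusted p = 0.00698). Kynu, of tryptophan breakdown, fell by 0.97 ± 0.17 (adjusted p = 0.00388), and Afmid of the same pathway fell by 1.07 ± 0.24 (adjusted p = 0.00925). Tdo2, the first enzyme on tryptophan, fell by 1.51 ± 0.44 (adjusted p = 0.027) and missed the threshold without normal liver 1, 2 or 3 (adjusted p = 0.0954, 0.0745 and 0.0693). Mat1a, which makes the liver's methyl donor, fell by 0.94 ± 0.32 (adjusted p = 0.0443) and missed the threshold without normal liver 1, 2 or 3, without tumour 2, 5 or 6, under upper-quartile factors or without a factor (adjusted p from 0.0535 to 0.138). Glycolytic isoforms that tumours favour rose in 6 of 15 cases (3 without normal liver 1, 2 without 3). Aldoa, the muscle-type aldolase, was at 102 to 177 CPM with a median of 136 against 64.9, 65.7 and 73.0 CPM (1.03 ± 0.19, adjusted p = 0.00459), and Pkm2, the pyruvate kinase gene of proliferating cells, at 17.2 to 32.5 CPM with a median of 24.6 against 11.8, 11.9 and 9.70 CPM (1.16 ± 0.19, adjusted p = 0.0034). Hk2, a hexokinase, rose by 1.85 ± 0.44 (adjusted p = 0.0126) and missed the threshold without normal liver 3 (adjusted p = 0.0542). Ldha, lactate dehydrogenase, was at 439 to 599 CPM with a median of 466 against 559, 549 and 467 CPM (-0.09 ± 0.17, adjusted p = 0.704), and the glucose importer Slc2a1 at 8.95 to 16.4 CPM with a median of 13.1 against 16.4, 12.95 and 15.7 CPM (-0.20 ± 0.22, adjusted p = 0.494), both without a call.

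Few secreted plasma proteins were called. 2 of 23 fell (1 without any 1 normal liver or without tumour 1 or 2), at a median of -0.36. Alb was at 55990.1 to 141215 CPM with a median of 103613 against 97549.7, 82658 and 107043 CPM (0.09 ± 0.38, adjusted p = 0.861). Ttr, transthyretin, was at 2022 to 5824 CPM with a median of 4596 against 6855, 6856 and 8746 CPM (-0.86 ± 0.36, adjusted p = 0.0875), and Apoa1, of high-density lipoprotein, at 6591 to 17743 CPM with a median of 12628 against 6737, 7838 and 9735 CPM (0.64 ± 0.37, adjusted p = 0.204). None of these 3 passed. C9, a pore-forming complement protein, was at 202 to 395 CPM with a median of 292 against 869, 910.4 and 634 CPM (-1.40 ± 0.24, adjusted p = 0.0035). Acute phase genes gave 3 rises and 1 fall of 15 (1 rise without normal liver 1 or 2, 6 without tumour 5, 5 under upper-quartile factors, 6 without a factor). Lcn2, a siderophore-binding protein, was at 435, 528, 80.8, 44.98, 186 and 181 CPM in tumours 1 to 6 against 4.31, 2.85 and 3.25 CPM (6.16 ± 0.96, adjusted p = 0.00264). Saa2, serum amyloid A, was at 34.1, 47.0, 25.1, 32.5, 12.2 and 226 CPM against 10.1, 8.15 and 8.72 CPM, rose by 2.83 ± 0.92 (adjusted p = 0.0394) and missed the threshold without normal liver 1, 2 or 3 or without tumour 2 (adjusted p from 0.052 to 0.123). Tumour 6 was the highest, and without it the log2 fold change was 1.78. Saa1 was at 47.3, 43.8, 32.1, 42.3, 18.1 and 352 CPM against 25.8, 28.4 and 32.9 CPM and did not pass (1.64 ± 0.92, adjusted p = 0.187). Hp, haptoglobin, did not pass either, at 2954 to 8424 CPM with a median of 5669.9 against 2971, 2821 and 2763 CPM (0.997 ± 0.38, adjusted p = 0.0679). Crp fell by 1.04 ± 0.30 (adjusted p = 0.0266) and missed the threshold without normal liver 1, 2 or 3 (adjusted p = 0.115, 0.0709 and 0.0616). Iron and metal genes gave 3 falls of 15 (1, 0 and 1 without normal liver 1, 2 and 3, where edgeR had 3 lower at an unadjusted p under 0.05 without 2). Upper-quartile scaling gave 3 rises and no factor 5. Hamp, the iron hormone hepcidin, was at 66.8, 796, 498, 1282, 815 and 267 CPM against 269.7, 417 and 415 CPM and was not called (0.77 ± 0.71, adjusted p = 0.41). Mt1, a metallothionein, was at 20.3 to 109.9 CPM with a median of 58.4 against 24.4, 9.86 and 45.9 CPM and was not called either (1.19 ± 0.56, adjusted p = 0.125).

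Hepatocyte transcription factors fell in 5 of 18 cases and rose in 1, at a median of -0.48 (3 fell without normal liver 2 or 3 and without tumour 1 or 5, 8 without tumour 4, 3 under upper-quartile factors). Nr5a2, the nuclear receptor LRH-1, was at 25.1 to 35.3 CPM with a median of 27.2 against 89.1, 70.9 and 65.4 CPM (-1.37 ± 0.13, adjusted p = 0.000556), and Prox1, a homeobox factor of early liver, at 18.7 to 30.9 CPM with a median of 24.6 against 63.9, 42.8 and 47.1 CPM (-1.04 ± 0.18, adjusted p = 0.00358). No tumour reached a normal liver in either. Hnf4a, the central factor of hepatocyte identity, was at 410.4 to 885 CPM with a median of 618 against 854, 799 and 640.5 CPM and was not called (-0.27 ± 0.24, adjusted p = 0.396). The pioneer factor Foxa2 was not called, at 29.4 to 43.4 CPM with a median of 30.3 against 25.4, 57.9 and 49.4 CPM (-0.42 ± 0.24, adjusted p = 0.182). Cebpa fell by 0.72 ± 0.25 (adjusted p = 0.0488) and missed the threshold without normal liver 1, 2 or 3, without tumour 1, 2, 5 or 6, under upper-quartile factors or without a factor (adjusted p from 0.072 to 0.169). The member that rose was Foxa3, by 0.91 ± 0.28 (adjusted p = 0.0313), which missed the threshold without normal liver 1, 2 or 3 or without tumour 1 (adjusted p from 0.0512 to 0.13).

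Along the liver lobule, genes of the central vein fell in 8 of 20 cases at a median of -1.33. On the portal side 3 of 16 fell, at a median of -1.16, and this share is near the 16.6% of all tested genes. The pericentral count was 1, 2 and 2 without normal liver 1, 2 and 3, 5 without tumour 2 or 3, and 14 without tumour 4. Lgr5, the Wnt receptor partner next to the central vein, was at 1.12 to 4.90 CPM with a median of 2.26 against 11.5, 7.98 and 8.76 CPM (-1.93 ± 0.40, adjusted p = 0.00751). Glul, glutamine synthetase of the same cells, was at 145, 228, 390.2, 816, 150.1 and 451 CPM in tumours 1 to 6 against 943, 931 and 1171 CPM, fell by 1.48 ± 0.49 (adjusted p = 0.0428) and missed the threshold without normal liver 1, 2 or 3, without tumour 1, 2, 3, 5 or 6 or under upper-quartile factors (adjusted p from 0.0549 to 0.124). Axin2, a feedback target of Wnt, fell by 1.34 ± 0.46 (adjusted p = 0.0463) and missed the threshold without normal liver 1, 2 or 3, without tumour 1, 2, 3 or 6, under upper-quartile factors or without a factor (adjusted p from 0.058 to 0.133). On the portal side, Agxt2l1, a phosphoethanolamine lyase, was at 12.6 to 59.5 CPM with a median of 30.1 against 301, 203 and 194 CPM (-2.87 ± 0.43, adjusted p = 0.0024), and Igfals, which stabilises circulating IGF-1, at 24.2 to 73.0 CPM with a median of 43.8 against 161, 195 and 145 CPM (-1.91 ± 0.29, adjusted p = 0.00248). The 1 portal gene that rose was Hsd17b13, a lipid droplet enzyme, at 606 to 1095 CPM with a median of 884 against 373, 342 and 446 CPM (1.21 ± 0.23, adjusted p = 0.00544). Sds, serine dehydratase, was at 10.9, 17.1, 147, 183, 7.09 and 97.2 CPM in tumours 1 to 6 against 145, 170.0 and 183 CPM (-1.11 ± 0.90, adjusted p = 0.35), and Hal, histidase, at 67.4, 65.1, 503, 424, 55.7 and 426 CPM against 639.8, 574 and 593 CPM (-1.23 ± 0.72, adjusted p = 0.203). Neither passed, and both were lowest in tumours 1, 2 and 5. Cyp2f2, a portal P450, was at 243 to 1196 CPM with a median of 715 against 1584, 1732 and 1389 CPM, without a call (-1.14 ± 0.43, adjusted p = 0.0615).

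Male-biased liver genes, which the pulsed growth hormone of males maintains through STAT5B, had the lowest median of the lists. 10 of 15 fell at a median of -2.12. The 1 that rose was Serpina12, the adipokine vaspin, at 50.5 to 582 CPM with a median of 217 against 42.1, 64.3 and 51.9 CPM (2.11 ± 0.73, adjusted p = 0.0488), and it missed the threshold without normal liver 1, 2 or 3 or without tumour 1, 3, 4 or 6 (adjusted p from 0.056 to 0.156). Hsd3b5, a steroid reductase restricted to male liver, was at 0.0732, 1.08, 1.70, 2.91, 1.01 and 4.59 CPM in tumours 1 to 6 against 314, 420.3 and 339 CPM (-7.56 ± 0.74, adjusted p = 0.000594). Mup7, a major urinary protein that carries pheromones, was at 0.0366, 1.04, 1.06, 1.35, 1.01 and 2.71 CPM against 1219.9, 1261 and 841 CPM (-9.83 ± 0.74, adjusted p = 0.000206). No tumour came near a normal liver in either. Mup1, Mup11, Mup12, Mup14 and Mup15 were also among the 12 largest falls, at -5.13 ± 0.83, -5.43 ± 0.96, -5.04 ± 0.81, -5.74 ± 0.66 and -6.18 ± 0.78, with adjusted p from 0.000923 to 0.00423. Mup genes are near-identical copies, so which copy the reads came from is uncertain. Mup20, a more divergent copy, was at 310.3 to 1156 CPM with a median of 683 against 777, 1008 and 839.6 CPM and was not called (-0.23 ± 0.38, adjusted p = 0.655). Cyp4a12a, a male-biased fatty acid hydroxylase, was not called either, at 76.3, 244, 577, 1020.3, 739 and 512 CPM against 365, 355 and 284 CPM (0.67 ± 0.62, adjusted p = 0.419). Cyp4a12b, its close copy, fell by 2.19 ± 0.65 (adjusted p = 0.0291) and missed the threshold without normal liver 1, 2 or 3 (adjusted p = 0.0904, 0.0859 and 0.0625). Cspg5, a proteoglycan, fell by 4.36 ± 0.49 (adjusted p = 0.000879). The other genes among the 12 largest falls were Slco1a1, given above, Susd4, Rfx4, Fam55b and Pitx3. Susd4, a complement regulator, was at 0.146 to 0.637 CPM with a median of 0.223 against 32.7, 33.8 and 40.9 CPM (-6.79 ± 0.38, adjusted p = 4e-05), the transcription factor Rfx4 at 0 to 0.246 CPM with a median of 0.0531 against 9.34, 7.54 and 9.55 CPM (-6.68 ± 0.74, adjusted p = 0.000811), and Fam55b at 0.706 to 3.50 CPM with a median of 1.10 against 38.3, 37.3 and 38.6 CPM (-4.77 ± 0.43, adjusted p = 0.000467). Pitx3, a homeobox factor, was at 14.7, 4.89 and 0.739 CPM in the normal livers and at most at 0.656 CPM in the tumours (-5.66 ± 1.19, adjusted p = 0.00785) and missed the threshold without normal liver 1 (adjusted p = 0.0502).

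Female-biased genes rose in part. 4 of 12 tested members rose (1 without normal liver 1 or 2), at a median of 1.98. Cyp2a4, a female-biased steroid hydroxylase with close copies, was at 2517, 11.2, 3570.4, 3096, 21.5 and 3604 CPM in tumours 1 to 6 against 4.92, 3.87 and 15.4 CPM, rose by 8.06 ± 2.13 (adjusted p = 0.0183) and missed the threshold without normal liver 1, 2 or 3 (adjusted p = 0.0797, 0.0778 and 0.0524). Cyp2b9 was at 8.64, 0.334, 75.8, 22.4, 0.0746 and 137 CPM against 6.70, 1.38 and 4.63 CPM and did not pass (3.27 ± 1.78, adjusted p = 0.173). In both, tumours 2 and 5 were the lowest and tumours 3 and 6 the highest. Prom1, a membrane glycoprotein that also marks progenitor cells, was higher in all tumours, at 7.64 to 20.6 CPM with a median of 8.10 against 1.67, 1.59 and 1.08 CPM (3.05 ± 0.47, adjusted p = 0.00251). The Y-linked genes Ddx3y, Kdm5d, Eif2s3y and Uty were present in all 9 libraries, Ddx3y at 55.1 to 84.6 CPM with a median of 73.5 in the tumours and 80.6, 60.8 and 98.5 CPM in normal liver, and none of these 4 was called (lowest adjusted p = 0.287). Xist, which female cells transcribe, reached at most 0.323 CPM in a tumour and 0.985 CPM in a normal liver. All 9 libraries thus carried Y-linked transcripts and hardly any Xist.

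The growth hormone axis itself was lower in part. 6 of 14 members fell. Ghr, the receptor, was at 152 to 481 CPM with a median of 250.3 against 735, 829 and 904 CPM (-1.54 ± 0.36, adjusted p = 0.0121), and Stat5b, the factor it activates, at 33.1 to 47.4 CPM with a median of 44.0 against 131, 109 and 94.4 CPM (-1.37 ± 0.13, adjusted p = 0.000556). Neither overlapped between the groups. Bcl6, a repressor of female-biased genes in male liver, was at 6.29 to 17.4 CPM with a median of 12.1 against 109, 22.2 and 36.9 CPM (-2.17 ± 0.45, adjusted p = 0.00728), and without normal liver 1 its log2 fold change was -1.24. Igf1, the hormone's main output, fell by 0.94 ± 0.26 (adjusted p = 0.02) and missed the threshold without normal liver 1, 2 or 3 (adjusted p = 0.0627, 0.0851 and 0.0634). Socs2, a feedback inhibitor, was at 19.8 to 44.6 CPM with a median of 33.2 against 5.32, 38.04 and 14.8 CPM and was not called (0.74 ± 0.51, adjusted p = 0.277).

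**Figure D4:**
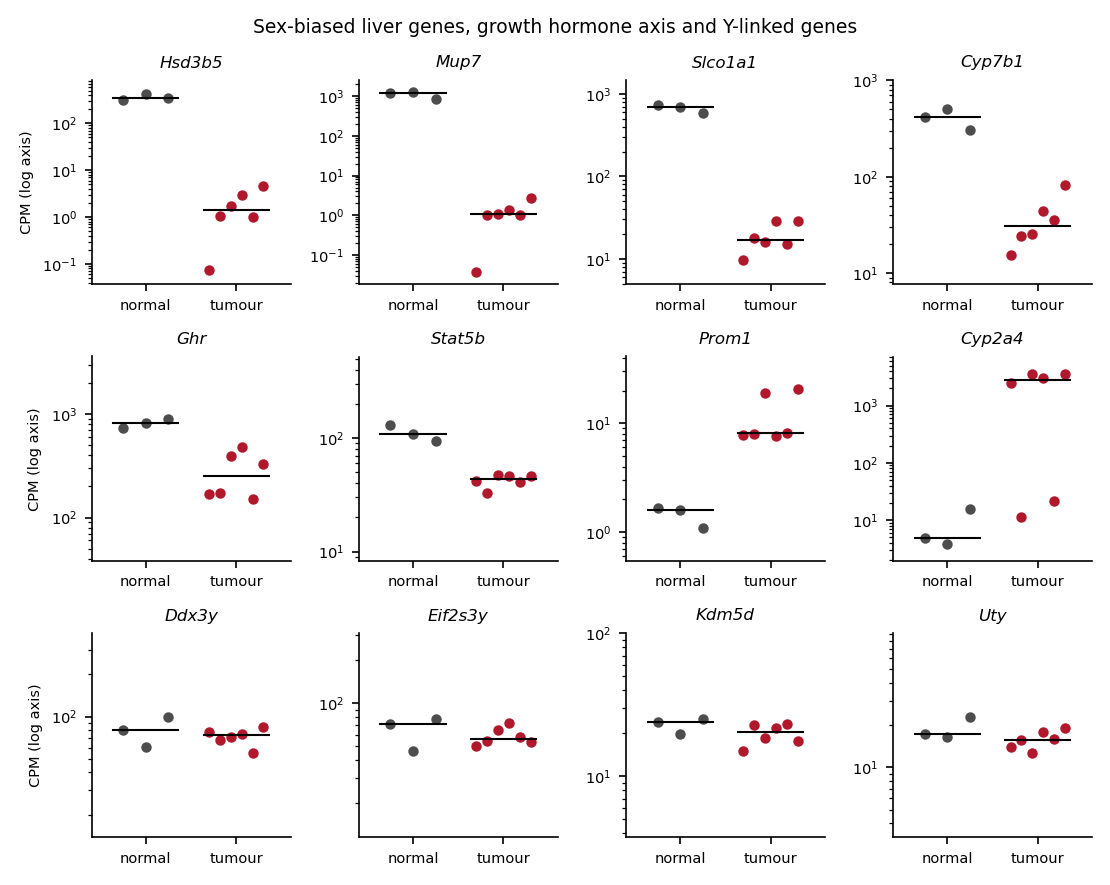
Level of 12 genes in CPM on a log axis in the 3 normal livers (grey) and the 6 Hmgb1-deleted tumours (red, in the order of their numbers), with bars at the medians. Hsd3b5, Mup7, Slco1a1 and Cyp7b1 are male-biased and lower in all tumours, Ghr and Stat5b belong to the growth hormone axis, Prom1 and Cyp2a4 are female-biased, and the Y-linked genes of the last row overlap between the groups.

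Many genes of innate and adaptive immunity rose, while other members of the same lists were not called. Of 20 interferon-stimulated genes 13 were higher, at a median of 1.20. Oas1a, an antiviral RNA sensor, was at 9.56 to 17.2 CPM with a median of 11.004 against 2.72, 2.40 and 2.76 CPM (2.26 ± 0.26, adjusted p = 0.000879). The ubiquitin-like Isg15 was at 18.2 to 34.8 CPM with a median of 24.2 against 9.34, 9.04 and 10.8 CPM (1.41 ± 0.20, adjusted p = 0.00187), and the GTPase Gbp3 at 16.1 to 28.0 CPM with a median of 19.9 against 7.76, 8.43 and 9.50 CPM (1.30 ± 0.19, adjusted p = 0.00202). Ifit3 rose by 1.28 ± 0.20 (adjusted p = 0.0027). None of these overlapped between the groups. Ifit1 rose by 1.11 ± 0.32 (adjusted p = 0.024) and missed the threshold without normal liver 1, 2 or 3 (adjusted p = 0.0707, 0.0992 and 0.0545). Irf7, a factor of the interferon response, rose by 0.68 ± 0.20 (adjusted p = 0.0266) and missed the threshold without normal liver 1, 2 or 3 (adjusted p = 0.0849, 0.101 and 0.0821). Of 15 genes of antigen presentation 8 rose, led by class II, and 7 were not called, among them the class I gene H2-K1 (-0.30 ± 0.32, adjusted p = 0.469) and its light chain B2m (0.34 ± 0.22, adjusted p = 0.235). H2-Aa was at 103, 241, 76.1, 157, 245 and 66.5 CPM in tumours 1 to 6 against 30.9, 23.01 and 15.95 CPM (2.69 ± 0.52, adjusted p = 0.00577), and the invariant chain Cd74 at 133 to 569 CPM with a median of 256 against 68.7, 52.2 and 30.0 CPM (2.71 ± 0.58, adjusted p = 0.00836). H2-Ab1 and H2-Eb1 rose by 2.53 ± 0.48 and 2.85 ± 0.54 (adjusted p = 0.00561 and 0.00547). All 4 were highest in tumours 2 and 5 and higher in every tumour than in any normal liver. Cytokines and chemokines rose in 16 of 20 cases and fell in 1 (6, 4 and 5 rose without normal liver 1, 2 and 3, 10 without tumour 2). The T-cell chemokine Ccl5 was at 2.28 to 8.18 CPM with a median of 5.78 against 0.934, 1.06 and 1.13 CPM (2.496 ± 0.39, adjusted p = 0.00258). The inflammatory cytokine Tnf was at 0.492 to 2.86 CPM with a median of 0.944 against 0.0812, 0.122 and 0.0985 CPM (3.51 ± 0.74, adjusted p = 0.00759), and Ltb, lymphotoxin beta, at 3.40 to 21.5 CPM with a median of 8.84 against 0.934, 0.652 and 0.739 CPM (3.90 ± 0.75, adjusted p = 0.00555). Ccl2, which draws monocytes, was at 15.9, 66.2, 3.66, 5.11, 28.5 and 3.77 CPM against 1.42, 0.652 and 0.591 CPM, rose by 4.56 ± 1.21 (adjusted p = 0.0185) and missed the threshold without normal liver 1, 2 or 3 (adjusted p = 0.0599, 0.0778 and 0.0693). Cxcl1, which draws neutrophils, rose by 1.54 ± 0.47 (adjusted p = 0.0318) and missed the threshold without normal liver 2 or 3 (adjusted p = 0.0857 and 0.0917). Cxcl12, the ligand of Cxcr4 and the member that fell, was at 125 to 305 CPM with a median of 169 against 684, 365 and 451 CPM (-1.34 ± 0.30, adjusted p = 0.00928) and missed the threshold without normal liver 1 (adjusted p = 0.0601). Il6 stayed at or under 0.223 CPM in all 9 libraries and was not tested.

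Markers of immune cells moved with these genes, and their part in them was not tested. The summed level of 17 macrophage and Kupffer cell genes was 901 to 6804 CPM (median 1566) in the tumours and 466 to 601 CPM in the normal livers, and without Spp1, which dominates it, 637 to 951 CPM (median 814) in the tumours and 396 to 545 CPM in the normal livers. 9 of 17 members rose. These were genes of recruited and lipid-associated macrophages, such as Gpnmb, at 5.89 to 16.1 CPM with a median of 9.88 against 0.691, 0.529 and 1.08 CPM (3.73 ± 0.40, adjusted p = 0.00072), and Trem2, at 1.49 to 7.54 CPM with a median of 3.30 against 0.487, 0.326 and 0.295 CPM (3.44 ± 0.62, adjusted p = 0.00433), and genes shared by macrophages, such as Cd68 (1.29 ± 0.25, adjusted p = 0.00549) and C1qa (1.26 ± 0.25, adjusted p = 0.00592). Clec4f, Vsig4, Cd5l and Timd4, of resident Kupffer cells, were not called. Clec4f was at 94.2, 20.6, 84.3, 84.6, 24.5 and 150.4 CPM in tumours 1 to 6 against 103, 96.3 and 55.4 CPM (-0.14 ± 0.56, adjusted p = 0.86), and Vsig4 at 6.09 to 32.0 CPM with a median of 23.8 against 23.4, 23.01 and 12.7 CPM (0.06 ± 0.48, adjusted p = 0.935). Cd5l was at 22.7 to 137 CPM with a median of 93.9 against 94.9, 88.0 and 57.5 CPM (0.09 ± 0.55, adjusted p = 0.912) and Timd4 at 0.595 to 8.12 CPM with a median of 4.57 against 7.80, 5.78 and 7.68 CPM (-0.68 ± 0.73, adjusted p = 0.479). All 4 were lowest in tumours 2 and 5.

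Lymphocyte genes were present at low levels, with a sum over 16 genes of 39.2 to 75.2 CPM (median 51.2) in the tumours and 29.1 to 29.4 CPM in the normal livers. 7 of 15 tested members rose and 1 fell (3, 2 and 4 rose without normal liver 1, 2 and 3). Cd8a, the co-receptor of cytotoxic T cells, was at 1.22 to 3.06 CPM with a median of 2.42 against 0.203, 0.407 and 0.148 CPM (3.17 ± 0.45, adjusted p = 0.00191), and Ptprc, the leukocyte antigen CD45, at 18.2 to 51.0 CPM with a median of 31.9 against 9.83, 9.37 and 10.05 CPM (1.81 ± 0.31, adjusted p = 0.00392). The member that fell was Zap70, the kinase of the T-cell receptor, at 0.366, 1.41, 0.956, 2.04, 1.57 and 1.19 CPM in tumours 1 to 6 against 6.01, 6.11 and 8.17 CPM (-2.41 ± 0.40, adjusted p = 0.00322). Chains of the same receptor complex went up instead. Cd3e rose by 2.002 ± 0.47 (adjusted p = 0.0114) and missed the threshold without normal liver 1 or 2 (adjusted p = 0.0599 and 0.0521). Cd3g rose by 2.22 ± 0.53 (adjusted p = 0.0129) and missed the threshold without normal liver 1 or 2 (adjusted p = 0.0568 and 0.055). Cd3d rose by 1.53 ± 0.53 (adjusted p = 0.0488), but missed the threshold without normal liver 1, 2 or 3 or without tumour 1, 2, 4, 5 or 6 (adjusted p from 0.0527 to 0.12). Of 4 tested neutrophil genes 2 rose, the receptor Csf3r by 1.74 ± 0.28 (adjusted p = 0.00307) and S100a8 by 1.81 ± 0.58 (adjusted p = 0.0374), and S100a8 missed the threshold without normal liver 1, 2 or 3 or without tumour 2, 3 or 4 (adjusted p from 0.0561 to 0.128). All 4 rose without tumour 5. The neutrophil sum was 11.01 to 19.8 CPM (median 14.1) in the tumours and 4.07 to 5.73 CPM in the normal livers. Red cell genes cannot be read here: Hbb-b1, Hbb-b2, Hba-a1 and Hba-a2 are listed at 0 in all 9 libraries. Of 2 tested members 1 fell. Alas2, the erythroid enzyme of heme synthesis, was at 16.8 to 43.2 CPM with a median of 30.4 against 158, 154 and 140.4 CPM (-2.31 ± 0.30, adjusted p = 0.00139), and Beta-s, a globin entry, at 14.7 to 69.3 CPM with a median of 29.3 against 30.3, 37.2 and 38.01 CPM (-0.06 ± 0.40, adjusted p = 0.918).

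Calls among stroma and vessel markers were no more frequent than the 34.7% of all genes. They numbered 5 of 15 for stellate cells, 7 of 22 for matrix and 4 of 16 for endothelium, and the stellate and endothelial sums overlapped between the groups. The sums over marker genes were 430.2 to 711 CPM (median 508) in the tumours and 409 to 543 CPM in the normal livers for stellate cells and 333 to 509 CPM (median 431) in the tumours and 297 to 469 CPM in the normal livers for sinusoidal endothelium. Of 15 stellate cell and myofibroblast genes 3 rose and 2 fell (5 rose without tumour 3 and 6 without 6, while 1 fell without normal liver 1 or 2 and 0 without 3, where edgeR had 2 lower at an unadjusted p under 0.05). Acta2, the smooth muscle actin of activated stellate cells, was at 7.75 to 32.2 CPM with a median of 15.96 against 2.97, 2.48 and 1.38 CPM (2.95 ± 0.59, adjusted p = 0.00642), and Tagln, which binds actin, at 16.5 to 41.6 CPM with a median of 21.2 against 8.08, 10.6 and 7.83 CPM (1.52 ± 0.32, adjusted p = 0.00759). Lrat, which stores retinol in quiescent stellate cells, fell by 1.58 ± 0.39 (adjusted p = 0.0138) and missed the threshold without normal liver 3 (adjusted p = 0.0576). Reln and Des were not called (-0.66 ± 0.56, adjusted p = 0.374 and 0.34 ± 0.24, adjusted p = 0.293). Matrix genes rose in 6 of 22 cases over all tumours, and this count varied with the libraries: 1 without normal liver 2, 0 without 1 or 3 (edgeR, 5 and 6 higher at an unadjusted p under 0.05), 10 without tumour 3 or 6, 3 without tumour 1 or 5. Col1a1 was at 68.1, 102, 13.4, 20.8, 73.4 and 19.9 CPM in tumours 1 to 6 against 11.1, 14.5 and 16.7 CPM and did not pass (1.85 ± 0.68, adjusted p = 0.059), nor did Col3a1 (1.45 ± 0.56, adjusted p = 0.0691) and Fn1, fibronectin (-0.55 ± 0.24, adjusted p = 0.0956). Col1a2 rose by 1.66 ± 0.57 (adjusted p = 0.0468) and missed the threshold without normal liver 1, 2 or 3 or without tumour 1, 2 or 5 (adjusted p from 0.0638 to 0.148). Col18a1, the source of endostatin, was lower in every tumour, at 511 to 735 CPM with a median of 595 against 1306, 1200.4 and 1263 CPM (-1.05 ± 0.18, adjusted p = 0.00355).

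Of 16 matrix proteases and inhibitors 7 rose and 1 fell (3 rose without any 1 normal liver). Mmp12, the macrophage elastase, was at 27.7, 3.98, 6.69, 8.18, 7.98 and 5.33 CPM in tumours 1 to 6 against 0.284, 0.570 and 0.345 CPM (4.64 ± 0.78, adjusted p = 0.00343). Plat, the tissue plasminogen activator, was at 2.66 to 11.9 CPM with a median of 6.26 against 0.731, 0.529 and 1.03 CPM (3.22 ± 0.62, adjusted p = 0.00564). Mmp2 and Mmp9, the gelatinases, were not called (0.76 ± 0.36, adjusted p = 0.123 and 0.00 ± 0.48, adjusted p = 0.997). Timp1 rose by 3.81 ± 1.01 (adjusted p = 0.0187) and missed the threshold without normal liver 1, 2 or 3 (adjusted p = 0.0797, 0.0712 and 0.0571). Of 16 endothelial genes 4 rose (1, 2 and 1 without normal liver 1, 2 and 3). Cd34, an antigen of capillaries that normal sinusoids largely lack, was at 6.64 to 27.0 CPM with a median of 12.5 against 2.32, 1.63 and 2.12 CPM (2.87 ± 0.55, adjusted p = 0.00545). Stab2, Stab1, Clec4g and Lyve1, of the sinusoid, were not called: Stab2 was at 34.1, 15.1, 53.2, 61.1, 14.03 and 54.1 CPM in tumours 1 to 6 against 65.1, 61.3 and 38.8 CPM (-0.51 ± 0.46, adjusted p = 0.402), and the adjusted p of the other 3 were 0.0674, 0.506 and 0.167. Bile duct and progenitor genes rose in 2 of 10 cases, Prom1 (above) and Spp1, osteopontin. Krt19 was at 0.597 to 2.53 CPM with a median of 1.56 against 1.46, 1.91 and 1.43 CPM (0.00 ± 0.43, adjusted p = 0.994) and Sox9 at 4.79 to 52.8 CPM with a median of 11.4 against 9.14, 4.89 and 5.02 CPM (1.48 ± 0.78, adjusted p = 0.16), both without a call. Spp1 was at 943, 6024, 265, 195, 1126 and 389 CPM in tumours 1 to 6 against 56.1, 57.7 and 69.8 CPM, rose by 4.65 ± 1.30 (adjusted p = 0.0225) and missed the threshold without normal liver 1, 2 or 3 (adjusted p = 0.088, 0.0857 and 0.0725). Of 8 hepatocyte markers 1 fell (Tat, -1.44 ± 0.48, adjusted p = 0.0423), and Tat missed the threshold without normal liver 1, 2 or 3, without tumour 1, 2 or 5 or under upper-quartile factors (adjusted p from 0.0513 to 0.137).

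Calls among clock genes changed with the normal livers. Of 17 members 2 rose and 4 fell, and without normal liver 1 or 2 these counts were 0 (edgeR, with 2 and 2 higher at an unadjusted p under 0.05) and 1. Arntl, the activator BMAL1, was at 36.6, 31.1 and 6.94 CPM in the normal livers and 2.496 to 21.5 CPM with a median of 6.35 in the tumours, without a call (-1.43 ± 0.69, adjusted p = 0.13). The time of day at collection is not given in the labels. Clock fell by 0.87 ± 0.23 (adjusted p = 0.0186) and missed the threshold without normal liver 1 or 2 or without a factor (adjusted p = 0.0864, 0.0639 and 0.115). Per2, a repressor of the clock, rose by 1.30 ± 0.37 (adjusted p = 0.024) and missed the threshold without normal liver 1 or 2 (adjusted p = 0.0917 and 0.0741). Per1 rose by 1.35 ± 0.46 (adjusted p = 0.0448) (0.90 without normal liver 1) and missed the threshold without normal liver 1, 2 or 3 or without tumour 1, 3, 4, 5 or 6 (adjusted p from 0.0513 to 0.0795). Rora, a nuclear receptor that feeds into the clock, fell by 1.84 ± 0.30 (adjusted p = 0.00303) and kept its call in each setting with 1 library left out.

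The 6 tumours were not alike. The mean log2 ratio of mitosis genes to normal liver was 2.83, 2.54, 0.83, 1.04, 2.83 and 1.47 in tumours 1 to 6. For cytochrome P450 genes it was -2.07, -2.36, -0.55, -0.17, -2.80 and -0.77, for urea cycle genes -2.11, -2.12, -0.61, -0.52, -2.20 and -0.99 and for YAP pathway genes 0.95, 1.68, 0.34, 0.36, 1.79 and 0.40. Tumours 1, 2 and 5 thus had the highest values for mitosis and YAP pathway genes and the lowest for these hepatocyte lists. Further hepatocyte lists were also lowest in tumours 1, 2 and 5. The amino acid and one-carbon list was at -2.03, -1.97, -0.49, -0.42, -2.03 and -0.87. Fatty acid oxidation genes were at -1.26, -1.35, -0.56, -0.30, -1.56 and -0.77. Some lists did not follow that order. The fetal list was at 2.57, 2.46, 2.92, 2.30, 2.59 and 2.97 and the interferon list at 0.96, 0.87, 0.65, 0.98, 1.14 and 0.90, with no tumour near 0, and the acute phase list was highest in tumour 6, at 0.85, 0.90, 0.40, 0.51, -0.32 and 1.85. No test was made between these tumours, since they carry no label that separates them.

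**Figure D5:**
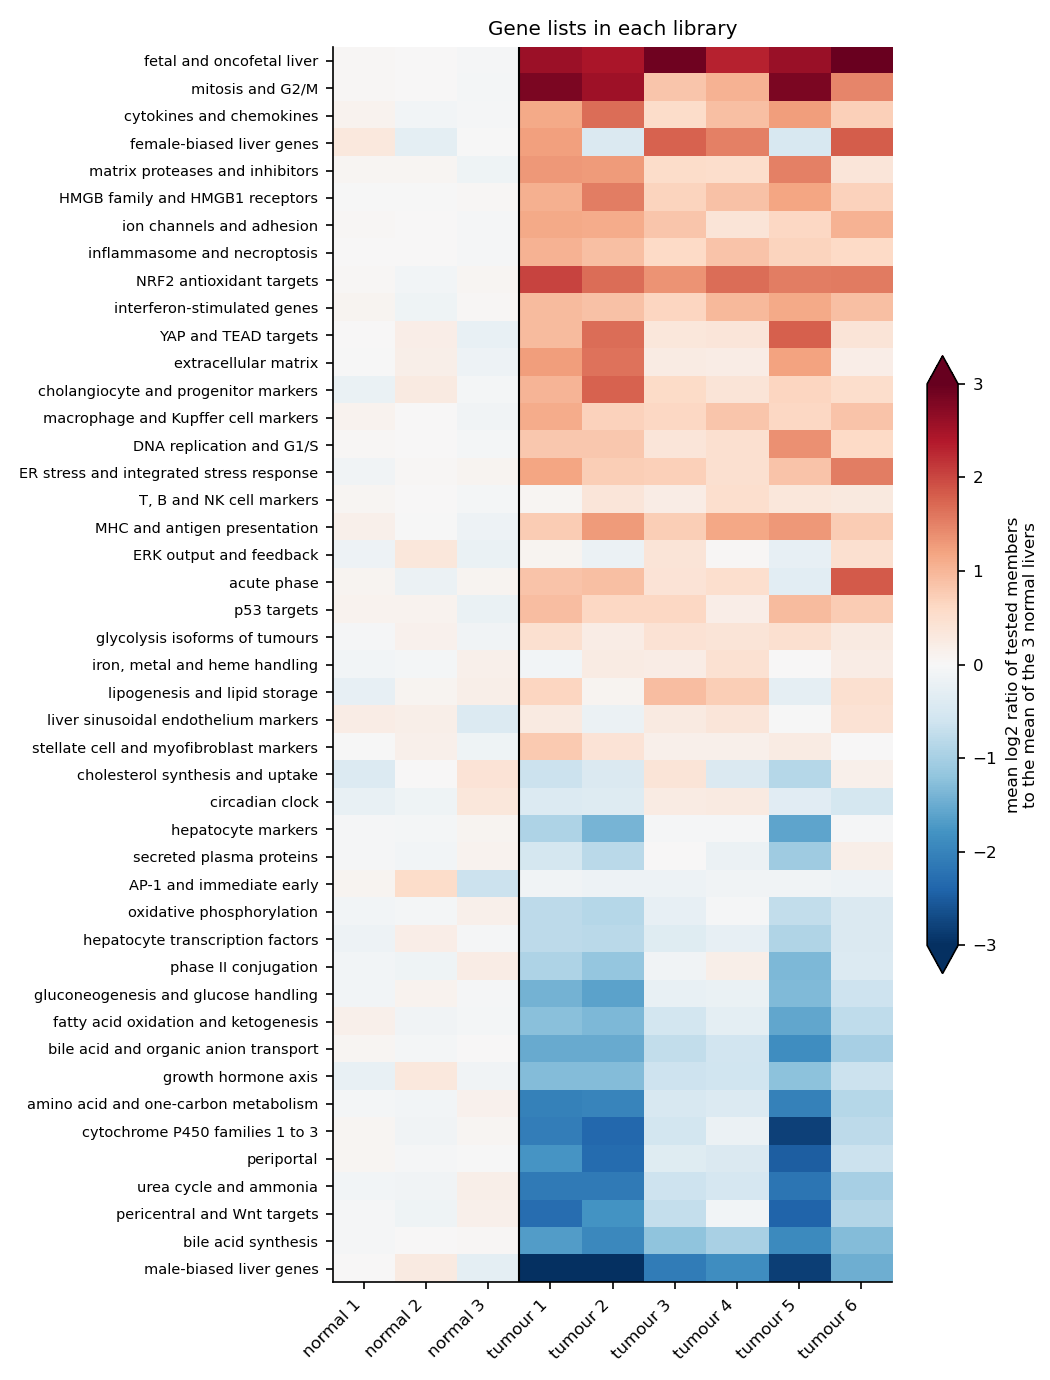
Each cell is the mean log2 ratio of a list's tested members to the mean of the 3 normal livers, from blue (lower) to red (higher), in 3 normal livers and 6 Hmgb1-deleted tumours (columns). The mitosis row reads 2.83, 2.54, 0.83, 1.04, 2.83 and 1.47 in tumours 1 to 6 and the urea cycle row -2.11, -2.12, -0.61, -0.52, -2.20 and -0.99, while the fetal row is red in all 6.

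Where the Hmgb1-deleted tumours also differed from tumours with intact Hmgb1, the difference was tested directly. Across all genes 1045 of 13433 (7.78%) passed in that test, and of the 269 genes named here that were tested in it 46 did, 17.1%. The named genes were chosen with these results known, so that share is a description, and the test shares the Hmgb1-deleted libraries with the comparison above. Single libraries were not left out in turn in this test. Whether its calls rest on 1 library is therefore not known. Cyp7a1 was at 1.54 to 9.99 CPM with a median of 7.19 in the floxed tumours, and the deleted tumours, which overlapped normal liver, were above them by 2.99 ± 0.37 on the log2 scale (adjusted p = 0.00131). Cd36 was at 55.0 to 141 CPM with a median of 83.0 there and higher in deleted tumours by 1.39 ± 0.24 on the log2 scale (adjusted p = 0.00697), and Plin4 at 0.944 to 6.37 CPM with a median of 3.82 and higher by 2.95 ± 0.48 on the log2 scale (adjusted p = 0.0057). The deleted group was the highest of the 3 groups by median in both. For Etfdh the floxed tumours were at 50.8 to 82.4 CPM with a median of 68.7, further below normal liver, and the deleted tumours were higher by 1.21 ± 0.16 on the log2 scale (adjusted p = 0.00154). Igfals was at 8.45 to 19.6 CPM with a median of 11.95 in floxed tumours and higher in deleted ones by 1.75 ± 0.28 on the log2 scale (adjusted p = 0.00544). Of genes raised over normal liver, Cd63 was at 47.0 to 84.7 CPM with a median of 64.0 in floxed tumours and differed in deleted ones by -1.40 ± 0.23 on the log2 scale (adjusted p = 0.00544). Golm1 was at 64.2 to 177 CPM with a median of 109.6 (-1.16 ± 0.30, adjusted p = 0.0355), Prom1 at 17.4 to 85.3 CPM with a median of 54.9 (-2.08 ± 0.40, adjusted p = 0.00997) and Ccne1 at 8.74 to 23.3 CPM with a median of 15.9 (-1.23 ± 0.27, adjusted p = 0.0183). For Etfdh, Igfals and these 4 genes the median of the deleted tumours thus lay between those of normal liver and floxed tumours. Zap70 was at 5.37 to 40.5 CPM with a median of 18.1 in floxed tumours and differed in deleted tumours by -3.97 ± 0.47 on the log2 scale (adjusted p = 0.00129), so that its median was lowest in the deleted group and highest in the floxed group. For Hmgb1 the difference was -0.90 ± 0.14 on the log2 scale (adjusted p = 0.00509). Mki67, Gpc3, Slc7a11, Hsd3b5 and Cps1 did not pass between the tumour groups (adjusted p = 0.779, 0.154, 0.455, 0.813 and 0.6).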

How the data were processed

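Poly-A RNA of 12 mouse liver tumours and 3 normal livers, purified on columns with DNase treatment, was sequenced from TruSeq libraries (per the labels' protocols). The authors' raw read counts per gene symbol stand in the deposited table (23284 symbols, 15 libraries). The build mm9, HTSeq 0.6.1, Bowtie2 2.2.4, TopHat2 2.1.0 and bcl2fastq 1.8.4 were used per the submitters' processing notes. The annotation, the strand setting and how multi-mapped reads were counted are not given in the sources used, so near-identical copies (Mup, Cyp2a, Gsta and the like) and overlapping antisense genes are uncertain.

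Groups came from the labels. Genes were kept with filterByExpr and tested with edgeR 4.0.16 (R 4.3.3; TMM factors, quasi-likelihood F test with robust dispersions, Benjamini-Hochberg over all 13784 tested genes, adjusted p under 0.05). CPM are the counts scaled with TMM factors over all 15 libraries. Hmgb1 alone was also tested by an exact permutation test on log2(CPM + 1). DESeq2 1.42.0 and limma 3.58.1 (voom with sample weights), other scalings and filters, all 15 libraries in 1 fit and each of the 9 libraries left out were alternatives. On simulated counts (13661 genes, 200 changed), edgeR recovered 24% of 2-fold and 69.8% of 4-fold changes with 3.19% false calls, and DESeq2 46% and 84.4% with 23.03%. Far fewer genes changed there than the 4787 called in the data. Both groups were also drawn with the same spread for each gene. In the data, normal livers mostly differed less from one another than the tumours did. These rates therefore hold for the simulated setting only. Lists are described by counts and medians, with no set test.

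The 48 gene lists held 799 entries, of which 795 matched the table (7 by synonym). Members, lists and tests were chosen with earlier results of these data known. Named genes are Hmgb1, the 12 largest rises and falls among called genes whose mean log2 CPM reached 1, members from the first 4 of each list or its 4 smallest p, with the members that moved alone in their list; some genes are not reported here. A few others (the Y-linked genes, Xist, Prom1, Zap70, Gpam, Dgat2, Plin5, Slc22a7, H2-K1, B2m and those in the comparison with floxed tumours) are named for a count of 5 or fewer or were chosen after their values were seen. Promoter sequences are RefSeq's (GRCm38.p6), used for sequence only, while the deposited counts rest on mm9.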

Additional observations from a re-analysis of the deposited data

Results flagged for a closer look

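For each named gene, the gap between the highest or lowest of the 6 Hmgb1-deleted tumours and its nearest neighbour was divided by the range of the group on the log2(CPM + 1) scale, and a ratio above Dixon's 95% critical value marked a tumour as far from the others. This was so for 14 of 275 genes. Chance marks about 1 in 20 groups, and the share found here was close to that.

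A single tumour was far above the rest in these genes. Cxcl17 was at 26.8 CPM in tumour 6, against 0.329 to 2.91 CPM in the other 5. Epcam was at 23.6 CPM in tumour 2, against 1.27 to 4.21 CPM in the other 5. Fam55b was at 3.50 CPM in tumour 4, against 0.706 to 1.38 CPM in the other 5. Foxa2 was at 43.4 CPM in tumour 6, against 29.4 to 32.5 CPM in the other 5. H19 was at 18.4 CPM in tumour 1, against 0.377 to 1.49 CPM in the other 5. Mmp12 was at 27.7 CPM in tumour 1, against 3.98 to 8.18 CPM in the other 5. Pitx3 was at 0.656 CPM in tumour 6, against 0 to 0.0538 CPM in the other 5. Saa1 was at 352 CPM in tumour 6, against 18.1 to 47.3 CPM in the other 5. Slc22a7 was at 51.1 CPM in tumour 2, against 1.72 to 5.97 CPM in the other 5. Sprr1a was at 49.4 CPM in tumour 1, against 0.410 to 4.04 CPM in the other 5.

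A single tumour was far below the rest in the others. Ccl5 was at 2.28 CPM in tumour 3, against 5.63 to 8.18 CPM in the other 5. Cdh1 was at 64.2 CPM in tumour 4, against 140 to 171 CPM in the other 5. Fn1 was at 935 CPM in tumour 4, against 1282 to 1525 CPM in the other 5. Hmgb1 was at 9.59 CPM in tumour 1, against 14.8 to 17.8 CPM in the other 5. Tumours 1, 4 and 6 each account for several of these values. Since the number of marked genes was near the share that chance gives, this is a description, and the cause was not tested.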

How the results depend on the processing

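No called named gene changed sign under any alternative, and 125 of the 196 called named genes kept their call under all of them (129 with each library left out in turn, 184 under 3 other scalings). The number of changed genes was 4787, and 2113 to 4912 with 1 library left out, 1038 to 2592 of them higher and 1075 to 2338 lower. An adjusted p under 0.01 left 1812 genes (846 higher, 966 lower). Without a scaling factor 1062 genes were lower, and the cause was not tested. DESeq2 called 5849 genes and voom 6711, RLE factors 4805. Without tumours 3, 4 and 6 the count was 6462 and without tumours 2 and 5 it was 4229. Calls within the gene lists numbered 321, and 175 to 348 with 1 library left out. Against floxed tumours, 1 fit of all 15 libraries gave 1629 genes in place of 1045.

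The Hmgb1 difference was -0.38 (exact permutation p = 0.19) without a factor. With 1 library left out it ran from -0.79 to -0.46, and with only 2 normal livers the exact permutation p was 0.0714, the smallest that design allows. Tumours and normal livers share the numbers 1 to 3. The deviations of same-numbered libraries from their group means had correlations of 0.081, 0.017 and 0.15, against -0.135 to 0.093 for different numbers. Of these 3 tumours 1 correlated best with its own number. So few libraries cannot settle whether the numbers mark a pairing, and the main test used none. With a replicate block over these 6 libraries 3055 genes passed (1617 higher, 1438 lower), and without the block 3679.

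Depth limits what can be said of genes under about 0.161 CPM in the 9 libraries and 0.169 CPM in the floxed tumours, and 3 normal livers limit every call.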
